A study of Homo sapiens with 21 samples.

Results

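Panc-1 clones that had become resistant to ATUX were compared with Panc-1 clones that had become resistant to Sorafenib. Panc-1 is an established human cell line from a pancreatic ductal carcinoma. The comparison takes in 4 of the 7 resistant clones of the study, 2 per drug, and 12 of its 21 RNA-seq libraries, chosen by the treatment label of each library. The other 3 clones, SMAP8D, SMAP9C and SMAP6G, were resistant to another drug, SMAP. They entered the fit that estimates the spread but not the comparison. The ATUX clones, ATUX8H and ATUX9D, were kept in standard culture medium with 8 µM ATUX, and the Sorafenib clones, Sor6G and Sor9H, in the same medium with 8 µM Sorafenib. Both drugs had an IC50 between 6 and 10 µM in the parent line, per the labels. Cultures had been passaged for 4 months under rising drug before single colonies were picked by dilution, and qRT-PCR results helped to choose which clones were sequenced. All 4 clones therefore carry a drug and a selection, and no untreated Panc-1 cells were analysed here: every difference below lies between resistant clones and none measures a change from the parent line. Each drug is represented by 2 clones, each clone by 3 libraries named as repeats, and nothing in the labels says that the repeats were separate cultures or that the clones of a drug came from separate selections.

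Sorafenib is an inhibitor of RAF kinases and of receptor tyrosine kinases such as the VEGF and PDGF receptors, and so acts on the signalling that runs from growth factor receptors through RAS, RAF, MEK and ERK. The study's design text places ATUX with activators of protein phosphatase 2A (PP2A), a phosphatase that is built from a scaffold, a catalytic and an interchangeable regulatory subunit and that takes phosphate off many targets of those kinases. The wording of that text can also be read as counting Sorafenib among these activators. Cells that survive a drug for months can differ in the drug's targets, in pumps and enzymes that handle drugs, in metabolism, in stress responses and in how epithelial they are, and clones grown from single cells also differ in their chromosomes. The genes below are ordered by these roles.

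Libraries held 21619126 to 27691256 counts with a median of 23105223. The share of mitochondrial reads ran from 3.19 to 5.22%. Levels are given as CPM, read counts scaled to a common library size with TMM factors and not corrected for gene length, and a clone's level is the mean of its 3 libraries. The 2 ATUX clones lay further apart than the 2 Sorafenib clones: the root mean square log2 difference over 13507 genes was 0.647 for ATUX8H and ATUX9D and 0.424 for Sor6G and Sor9H. Between a clone of one drug and a clone of the other it ran from 0.998 (ATUX8H and Sor6G) to 1.20 (ATUX9D and Sor9H). The third library of ATUX8H and of ATUX9D stood 0.364 and 0.291 from the other 2 libraries of its clone, while the remaining 10 libraries stood 0.152 to 0.231 from theirs, so results on which these 2 libraries bear are given below with and without them.

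The labels call the cells pancreatic duct epithelium. Of 11 duct markers, KRT8 and KRT18, keratins of simple epithelia, made up most of the signal: KRT8 stood at 6103 and 4203 CPM in the ATUX clones against 2089 and 2755 CPM in the Sorafenib clones, and KRT18 at 3001 and 2297 CPM in the ATUX clones against 858 and 1007 CPM in the Sorafenib clones. KRT18 was called higher (edgeR adjusted p = 0.0184), and KRT8 was not called (log2 = 1.10, 95% interval 0.28 to 1.93, edgeR adjusted p = 0.0579). Keratin KRT7 was called lower, at 16.8 and 10.5 CPM in the ATUX clones against 30.2 and 29.4 CPM in the Sorafenib clones (log2 = -1.13 ± 0.32, edgeR adjusted p = 0.0437), and SOX9, a transcription factor of duct cells, was about level, at 159.6 and 146 CPM in the ATUX clones against 164 and 145 CPM in the Sorafenib clones (log2 = -0.00454, 95% interval -0.36 to 0.35, edgeR adjusted p = 0.987). KRT18 lost its call without ATUX8H, Sor6G or Sor9H (edgeR adjusted p = 0.0575, 0.101 and 0.0878). KRT18 had an adjusted p of 2.92e-11 to 0.101 over its 16 alternatives. KRT7 lost its call without ATUX9D, Sor6G, Sor9H or SMAP6G or with only the 4 clones (edgeR adjusted p = 0.156, 0.130, 0.134, 0.0677 and 0.0590). KRT7 had an adjusted p of 1.21e-09 to 0.156 over its 16 alternatives. The summed duct markers reached 7155 to 13245 CPM in the 6 ATUX libraries and 3459 to 5153 CPM in the 6 Sorafenib libraries. However, 5 of the 11 stayed under 1 CPM in all 12 libraries, and CFTR, the chloride channel of duct cells, was at 0 in all of them. Markers of acinar, endocrine, immune and endothelial cells each summed to at most 7.28 CPM in any library, and those of fibroblasts to 25.6 to 78.03 CPM in ATUX libraries and 53.8 to 190.5 CPM in Sorafenib libraries.

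Of 18613 genes tested, 4810 differed between the drugs at an adjusted p below 0.05 (edgeR quasi-likelihood test on counts summed per clone, Benjamini-Hochberg adjustment), which is 25.8%. Of all genes tested, 13.3% were called higher and 12.5% lower in the ATUX clones (2479 and 2331 genes), and the median log2 difference, ATUX over Sorafenib, was 0.01. A call sets the difference between drugs against the spread among clones of a drug, which 2 clones per drug measure poorly. That spread was estimated from all 7 clones, the 3 SMAP clones included. With only the 4 compared clones, 2750 genes were called. The number of calls was 3990 without ATUX8H, 2780 without ATUX9D, 2142 without Sor6G and 1430 without Sor9H, so the calls that need 1 clone are named as such below. Of each gene list, the share called is to be read against 13.3% higher and 12.5% lower over all genes. Genes of DNA replication, cholesterol synthesis, ribosome biogenesis, heat shock and fatty acid synthesis were among those called higher more often than that. Genes of the integrated stress response, amino acid supply and interferon response and mitochondrially encoded genes were among those called lower more often. Other lists also exceeded these shares, such as glycolysis genes (13 of 34 higher) and tRNA synthetases (8 of 20 lower and 6 higher). With only the 4 compared clones, mitochondrially encoded genes called lower fell from 6 to 0.

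**Figure D1:**
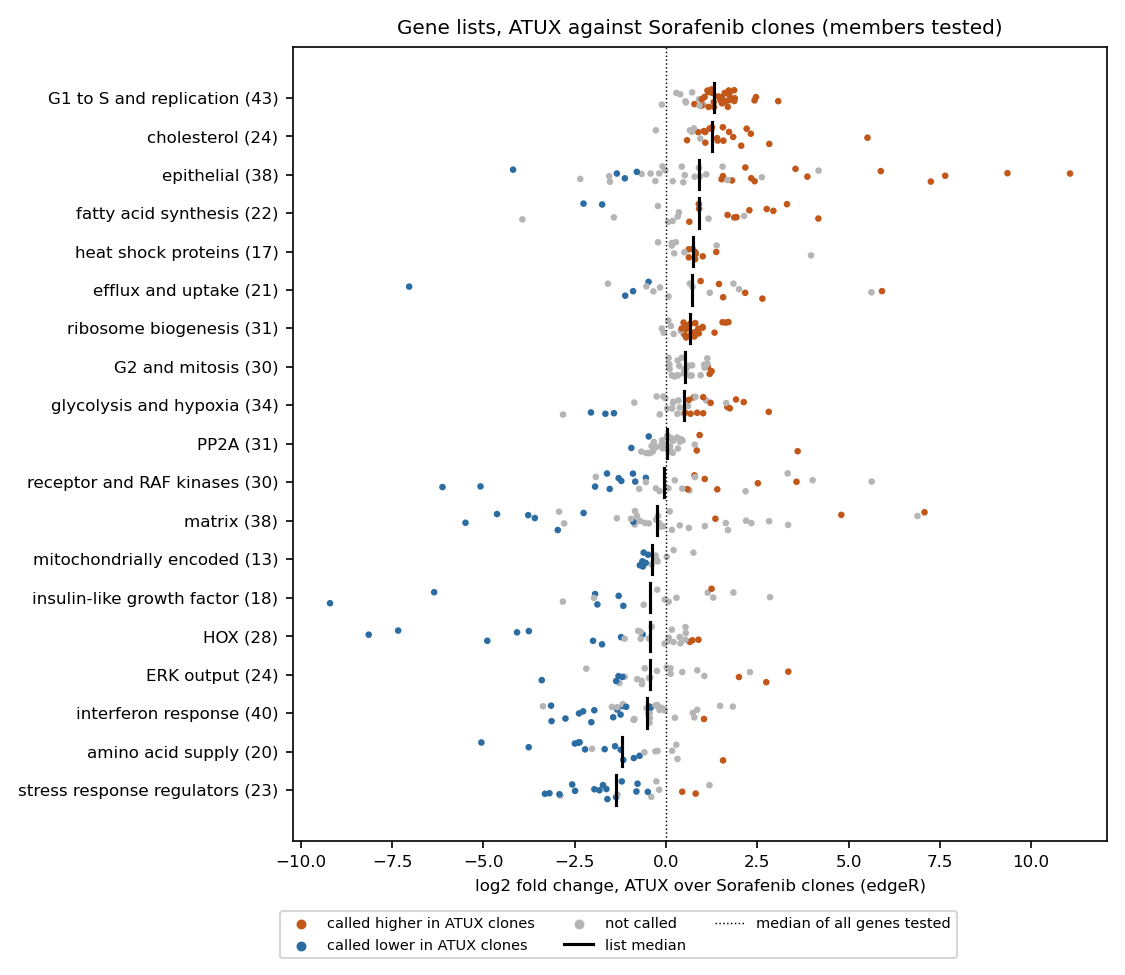
Log2 fold change, ATUX over Sorafenib clones (edgeR), of every tested member (points) of 19 gene lists (rows, with the number of members tested), ordered by the list median (black bars). Orange points were called higher and blue points lower in the ATUX clones, grey points were not called, and the dotted line marks the median of all genes tested, 0.01; replication and cholesterol genes lie mostly to its right and stress response regulators mostly to its left.

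Some genes were expressed in the clones of 1 drug and close to silent in those of the other. LEF1 (ENSG00000138795, GRCh38 chromosome 4, 108047545 to 108168956, minus strand) encodes a transcription factor that carries out WNT signals. Its level was 10.9 to 19.8 CPM in the 6 ATUX libraries (median 16.8) and 0 CPM in each of the 6 Sorafenib libraries. This was at least 754-fold higher in the ATUX clones against a floor of 3 counts over the clones at 0, edgeR adjusted p = 0.000881. RNF128, a ubiquitin ligase of the endosomal membrane, followed the same pattern at 18.1 and 13.2 CPM in the ATUX clones against 0 and 0 CPM in the Sorafenib clones (at least 746-fold higher in the ATUX clones against a floor of 3 counts over the clones at 0, edgeR adjusted p = 0.000881). Neither gene had a single read in any of the 6 Sorafenib libraries, against 2212 reads of LEF1 and 2190 of RNF128 over the 6 ATUX libraries. CES1, a carboxylesterase that hydrolyses esters and many drugs, stood at 93.3 and 153 CPM in the ATUX clones against 0.0148 and 0.0146 CPM in the Sorafenib clones (ratio of the counts 8850.2, 95% counting interval 2449.6 to 73084, edgeR adjusted p = 0.000881). CA8, a protein of the carbonic anhydrase family, stood at 58.3 and 95.1 CPM in the ATUX clones against 0.0402 and 0.0146 CPM in the Sorafenib clones (log2 = 11.33 ± 0.54, edgeR adjusted p = 0.000807), and ZNF385D, a zinc finger gene, at 20.7 and 14.5 CPM in the ATUX clones against 0 and 0.0150 CPM in the Sorafenib clones (ratio of the counts 2528, 95% counting interval 453 to 99880.3, edgeR adjusted p = 0.000807). The 6 ATUX libraries lay above the 6 Sorafenib libraries for each of these genes. Separate libraries were a condition for naming them, so this adds no support. None of the 5 lost its call in any alternative tried. In RNA from a whole culture, fewer cells that express a gene and less RNA per cell cannot be told apart.

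In the other direction, CCDC8, a partner of the cullin ligase scaffold CUL7, had 0 counts in both ATUX clones, against 15.6 and 16.5 CPM in Sor6G and Sor9H (at least 746-fold lower in the ATUX clones against a floor of 3 counts over the clones at 0, edgeR adjusted p = 0.000881). IGFBP2, a secreted protein that binds insulin-like growth factors, stood at 0.409 and 0.288 CPM in the ATUX clones against 147 and 268 CPM in the Sorafenib clones (log2 = -9.20 ± 0.59, edgeR adjusted p = 0.00132). TMTC1, an enzyme that adds mannose to proteins in the endoplasmic reticulum, stood at 1.08 and 0.219 CPM in the ATUX clones against 63.2 and 148 CPM in the Sorafenib clones (log2 = -7.36 ± 1.13, edgeR adjusted p = 0.00787). SLCO2A1, which takes prostaglandins into the cell, stood at 0.102 and 0.154 CPM in the ATUX clones against 13.3 and 20.96 CPM in the Sorafenib clones (log2 = -7.03 ± 0.94, edgeR adjusted p = 0.00563). MGP, a secreted matrix protein that holds back calcification, stood at 1.22 and 0.545 CPM in the ATUX clones against 40.98 and 146 CPM in the Sorafenib clones (log2 = -6.73 ± 0.79, edgeR adjusted p = 0.00419). The Sorafenib clones held all 5 genes well above every ATUX library, though Sor9H stood higher than Sor6G for MGP. Separate libraries were again a condition for naming these genes. Without the third ATUX libraries, MGP stood at 0.556 and 0.525 and TMTC1 at 0.449 and 0.329 CPM in ATUX8H and ATUX9D.

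Other genes of this extreme kind rested on 1 clone of a drug more than on the other. CDH10, a cadherin best known from neurons, stood at 0.930 and 33.8 CPM in the ATUX clones against 0 and 0 CPM in the Sorafenib clones (edgeR adjusted p = 0.0248), and DSC3, a desmosomal cadherin, at 5.37 and 44.2 CPM in the ATUX clones against 0.0117 and 0 CPM in the Sorafenib clones (edgeR adjusted p = 0.0138), so that ATUX9D carried most of the signal of both. TRBC2, a T-cell receptor constant gene with a close copy in the genome, went the other way among the ATUX clones, at 41.7 and 1.29 CPM in the ATUX clones against 0.0137 and 0 CPM in the Sorafenib clones (edgeR adjusted p = 0.0160). Immune markers summed to 2.11 to 5.26 CPM in ATUX libraries and 1.03 to 1.78 CPM in Sorafenib libraries, and their part in the reads of TRBC2 was not tested. FGL2, a fibrinogen-like secreted protein, stood at 0.0735 and 0.0428 CPM in the ATUX clones against 27.5 and 376 CPM in the Sorafenib clones (log2 = -11.74 ± 1.70, edgeR adjusted p = 0.00669), and DAPK1, a kinase that can promote cell death, at 0.174 and 0.0536 CPM in the ATUX clones against 34.4 and 3.13 CPM in the Sorafenib clones (log2 = -7.32 ± 1.35, edgeR adjusted p = 0.0131). RXFP1, the relaxin receptor, stood at 0 and 0.0257 CPM in the ATUX clones against 4.82 and 34.8 CPM in the Sorafenib clones (ratio of the counts 1329.6, 95% counting interval 368 to 10984, edgeR adjusted p = 0.0141). CDH10 lost its call without Sor6G or Sor9H, with only the 4 clones or with no low-count filter (edgeR adjusted p = 0.0911, 0.103, 0.0912 and 0.147). CDH10 had an adjusted p of 1.32e-14 to 0.147 over its 16 alternatives. DSC3 lost its call without Sor6G or Sor9H or with no low-count filter (edgeR adjusted p = 0.0771, 0.0954 and 0.0669). DSC3 had an adjusted p of 8.63e-13 to 0.0954 over its 16 alternatives. TRBC2 without the third ATUX libraries stood at 17.3 and 0.996 CPM in ATUX8H and ATUX9D. TRBC2 lost its call without Sor6G or Sor9H, with only the 4 clones, with no low-count filter or by limma-voom (adjusted p = 0.0858, 0.105, 0.0574, 0.0779 and 0.144). TRBC2 had an adjusted p of 1.16e-11 to 0.144 over its 16 alternatives. FGL2 without the third ATUX libraries stood at 0.0429 and 0.0193 CPM in ATUX8H and ATUX9D. FGL2 lost its call by limma-voom (adjusted p = 0.131). FGL2 had an adjusted p of 8.11e-18 to 0.131 over its 16 alternatives. DAPK1 lost its call without ATUX9D or with no low-count filter (edgeR adjusted p = 0.0725 and 0.0510). DAPK1 had an adjusted p of 3.72e-18 to 0.0725 over its 16 alternatives. Its log2 was -4.76 without Sor6G. RXFP1 lost its call without ATUX8H, ATUX9D or Sor9H or with no low-count filter (edgeR adjusted p = 0.0588, 0.0627, 0.0578 and 0.0634). RXFP1 had an adjusted p of 3.91e-17 to 0.0634 over its 16 alternatives.

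**Figure D2:**
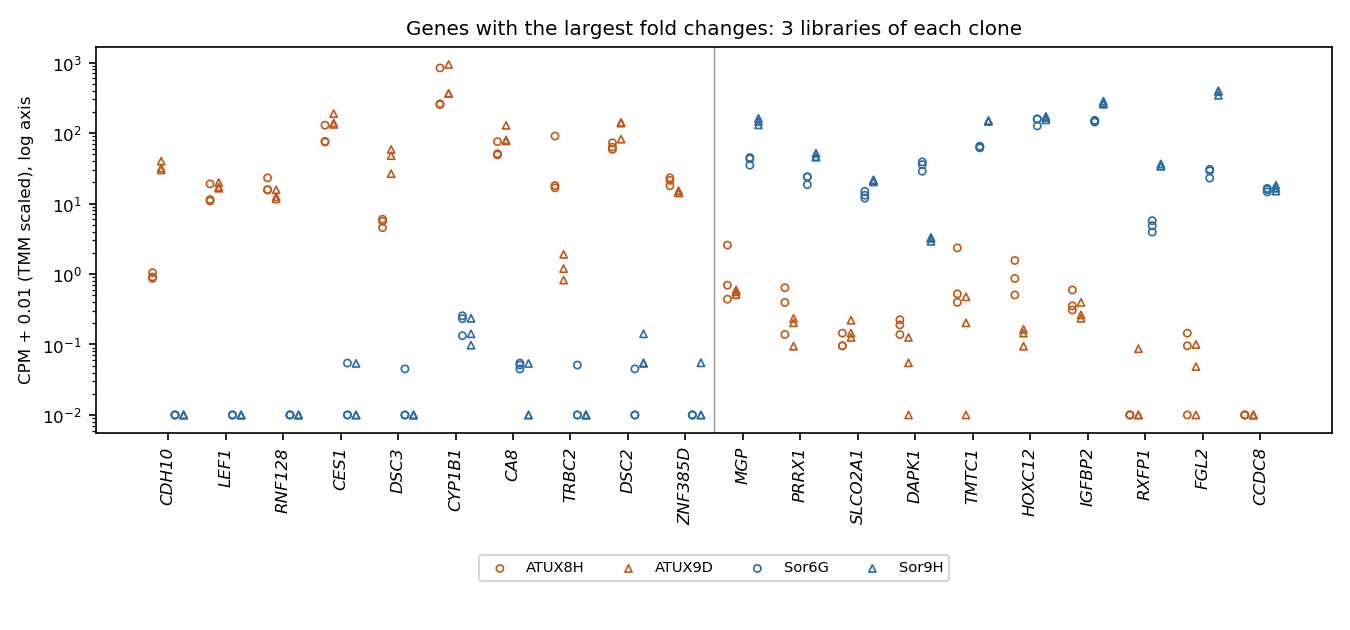
Level of the genes described in the text among the 12 with the largest fold change in each direction (higher in the ATUX clones on the left, lower on the right), as CPM plus 0.01 on a log axis; each symbol is 1 of the 3 libraries of ATUX8H, ATUX9D, Sor6G or Sor9H, and symbols on the bottom line have 0 counts. The clones of a drug stand apart for CDH10, DSC3, TRBC2, DAPK1, RXFP1 and FGL2, and lie close together for LEF1, RNF128, CES1 and CCDC8.

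Abundant transcripts also differed. PERP, a membrane protein of desmosomes, stood at 906 and 1086 CPM in ATUX8H and ATUX9D, against 93.8 and 128 CPM in Sor6G and Sor9H (log2 = 3.17 ± 0.21, edgeR adjusted p = 0.00123). CD44, the receptor for hyaluronan, stood at 2377 and 3147 CPM in the ATUX clones against 735 and 867 CPM in the Sorafenib clones (log2 = 1.79 ± 0.22, edgeR adjusted p = 0.00453). Both were higher in every ATUX library than in any Sorafenib library. The rule that names genes by their difference in CPM takes only genes with separate libraries. Calpain 2 (CAPN2), a calcium-dependent protease, was the other way round at 659 and 463 CPM in the ATUX clones against 1737 and 2418 CPM in the Sorafenib clones (log2 = -1.89 ± 0.24, edgeR adjusted p = 0.00482), as was the glycogen phosphorylase PYGB at 1047 and 899 CPM in the ATUX clones against 1717 and 2092 CPM in the Sorafenib clones (log2 = -0.97 ± 0.15, edgeR adjusted p = 0.00771).

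The genes of PP2A itself, named as the target of ATUX's class, gave few calls in the edgeR fit. Of 31 tested, 3 were called higher and 2 lower in the ATUX clones (median log2 0.04). The main catalytic subunit PPP2CA was higher, at 174 and 204 CPM in the ATUX clones against 100.3 and 101 CPM in the Sorafenib clones (log2 = 0.92 ± 0.12, edgeR adjusted p = 0.00508). Its gene lies on chromosome 5, where the median gene was also higher (given below). The second catalytic gene, PPP2CB, stood at 48.7 and 69.3 CPM in the ATUX clones against 56.7 and 50.4 CPM in the Sorafenib clones (log2 = 0.15, 95% interval -0.32 to 0.62, edgeR adjusted p = 0.603). The scaffold PPP2R1A stood at 161 and 199 CPM in the ATUX clones against 122 and 143 CPM in the Sorafenib clones (log2 = 0.45, 95% interval 0.09 to 0.82, edgeR adjusted p = 0.0704) and the scaffold PPP2R1B at 74.1 and 80.5 CPM in the ATUX clones against 80.8 and 71.8 CPM in the Sorafenib clones (log2 = 0.03, 95% interval -0.54 to 0.60, edgeR adjusted p = 0.941). The intervals of PPP2CB and PPP2R1B include 0, so no difference was detected within those bounds, and PPP2R1A did not pass although its interval lies above 0.

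Among regulatory subunits, the B55 gene PPP2R2C, which is mostly expressed in brain, stood at 22.9 and 8.35 CPM in the ATUX clones against 1.64 and 0.886 CPM in the Sorafenib clones (log2 = 3.61 ± 0.56, edgeR adjusted p = 0.00815), with ATUX8H above ATUX9D. Its neighbour in the family PPP2R2A, the widely expressed B55 subunit, stood at 32.8 and 29.2 CPM in the ATUX clones against 32.4 and 27.95 CPM in the Sorafenib clones (log2 = 0.04, 95% interval -0.27 to 0.36, edgeR adjusted p = 0.841). PPP2R2B split the ATUX clones instead of the drugs, at 47.6 and 2.11 CPM in the ATUX clones against 25.5 and 41.9 CPM in the Sorafenib clones (log2 = -0.44, 95% interval -4.51 to 3.64, edgeR adjusted p = 0.869). The B56 subunit PPP2R5B was lower in both ATUX clones, at 23.3 and 23.5 CPM in the ATUX clones against 39.4 and 51.5 CPM in the Sorafenib clones (log2 = -0.95 ± 0.15, edgeR adjusted p = 0.00815), while PPP2R5A, PPP2R5C, PPP2R5D and PPP2R5E did not pass, with log2 values of -0.09, -0.36, 0.41 and 0.19 (edgeR adjusted p = 0.586, 0.0753, 0.0608 and 0.227). PPME1, which removes the methyl group from the catalytic subunit, was higher at 125 and 148 CPM in the ATUX clones against 81.2 and 72.01 CPM in the Sorafenib clones (log2 = 0.84 ± 0.16, edgeR adjusted p = 0.0148). LCMT1, which adds that group, stood at 25.8 and 22.96 CPM in the ATUX clones against 33.3 and 30.96 CPM in the Sorafenib clones (log2 = -0.39, 95% interval -0.70 to -0.08, edgeR adjusted p = 0.0653). Of the inhibitors, ARPP19 was lower (log2 = -0.47 ± 0.12, edgeR adjusted p = 0.0306), SET stood at 376 and 470.4 CPM in the ATUX clones against 414 and 415 CPM in the Sorafenib clones (log2 = 0.04, 95% interval -0.30 to 0.38, edgeR adjusted p = 0.868) and KIAA1524, also known as CIP2A, at 86.04 and 110.0 CPM in the ATUX clones against 73.3 and 41.02 CPM in the Sorafenib clones (log2 = 0.79, 95% interval 0.08 to 1.49, edgeR adjusted p = 0.0931). PPP2R2C lost its call without Sor9H (edgeR adjusted p = 0.0591). PPP2R2C had an adjusted p of 4.74e-14 to 0.0591 over its 16 alternatives. PPME1 lost its call without ATUX9D or Sor9H (edgeR adjusted p = 0.0550 and 0.0882). PPME1 had an adjusted p of 2.83e-16 to 0.0882 over its 16 alternatives. ARPP19 lost its call without ATUX8H, ATUX9D, Sor6G, Sor9H or SMAP8D or with only the 4 clones (edgeR adjusted p = 0.0948, 0.0655, 0.0624, 0.133, 0.0554 and 0.0756). ARPP19 had an adjusted p of 1.32e-11 to 0.133 over its 16 alternatives. Members called higher numbered 1 without Sor9H, 6 without ATUX8H and 7 by limma-voom. Members called lower numbered 1 without ATUX9D, Sor6G, Sor9H or SMAP8D or with only the 4 clones and 8 by limma-voom.

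Of the kinases that Sorafenib inhibits, BRAF and ARAF differed by less than FLT1 and PDGFRA. BRAF was lower and ARAF higher in the ATUX clones, by -0.55 ± 0.14 and 0.78 ± 0.22 on the log2 scale (edgeR adjusted p = 0.0310 and 0.0403). BRAF lies on chromosome 7, where the median gene was also lower (given below). BRAF lost its call without ATUX8H, ATUX9D, Sor6G, Sor9H or SMAP8D or with only the 4 clones (edgeR adjusted p = 0.0526, 0.118, 0.114, 0.0885, 0.0535 and 0.0545). BRAF had an adjusted p of 6.94e-07 to 0.118 over its 16 alternatives. ARAF lost its call without ATUX8H, Sor6G, Sor9H, SMAP8D, SMAP9C or SMAP6G or with only the 4 clones (edgeR adjusted p = 0.104, 0.170, 0.132, 0.0646, 0.0635, 0.0645 and 0.113). ARAF had an adjusted p of 1.95e-14 to 0.170 over its 16 alternatives. Its log2 was 0.38 without ATUX8H. Both calls thus needed most of the clones. The VEGF receptor FLT1 and the PDGF receptor PDGFRA were close to silent in the ATUX clones and low in the Sorafenib clones: FLT1 stood at 0.0435 and 0.0269 CPM in the ATUX clones against 1.18 and 1.34 CPM in the Sorafenib clones (log2 = -5.08 ± 0.44, edgeR adjusted p = 0.00240) and PDGFRA at 0.0429 and 0.0398 CPM in the ATUX clones against 1.82 and 4.45 CPM in the Sorafenib clones (log2 = -6.12 ± 0.67, edgeR adjusted p = 0.00356). These 2 genes were picked after their values were seen. RET, another Sorafenib target, stood at 76.5 and 34.7 CPM in the ATUX clones against 1.44 and 0.841 CPM in the Sorafenib clones, a large difference that did not pass (log2 = 5.63, 95% interval 1.21 to 10.05, edgeR adjusted p = 0.0658).

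Over the 30 receptor and RAF kinases tested, 6 were called higher and 10 lower in the ATUX clones (median log2 -0.06). The receptor AXL, which binds GAS6 and is often raised in cells that resist kinase inhibitors, stood at 258 and 156 CPM in ATUX8H and ATUX9D, against 641 and 565 CPM in Sor6G and Sor9H (log2 = -1.54 ± 0.24, edgeR adjusted p = 0.00814). DDR1, a receptor for collagen, was higher at 207 and 210.3 CPM in the ATUX clones against 68.4 and 90.3 CPM in the Sorafenib clones (log2 = 1.404 ± 0.23, edgeR adjusted p = 0.00920), as was ERBB2, a partner of the EGF receptor, at 63.1 and 83.7 CPM in the ATUX clones against 30.6 and 40.8 CPM in the Sorafenib clones (log2 = 1.06 ± 0.20, edgeR adjusted p = 0.0125). EGFR itself stood at 333 and 293 CPM in the ATUX clones against 394 and 366 CPM in the Sorafenib clones (log2 = -0.28, 95% interval -0.67 to 0.11, edgeR adjusted p = 0.242), and MET, the receptor for hepatocyte growth factor, at 333 and 164 CPM in the ATUX clones against 400.5 and 427 CPM in the Sorafenib clones (log2 = -0.73, 95% interval -1.69 to 0.22, edgeR adjusted p = 0.212). ERBB2 lies on chromosome 17 at 30 to 40 Mb, where the median log2 over 69 genes was 0.98. ERBB2 lost its call without Sor6G. ERBB2 had an adjusted p of 1.60e-06 to 0.0594 over its 16 alternatives. Kinases called higher numbered 1 without Sor6G, 2 without Sor9H and 3 with only the 4 clones. Kinases called lower numbered 3 without Sor6G or Sor9H, 4 without ATUX8H or ATUX9D and 6 without SMAP8D.

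Genes read out as ERK activity did not differ one way. Of 24 tested, 3 were called higher and 4 lower in the ATUX clones (median log2 -0.45). The 3 included both members on chromosome 5, EGR1 among them. The immediate early gene EGR1 was higher, at 10.2 and 8.76 CPM in the ATUX clones against 0.516 and 1.33 CPM in the Sorafenib clones (log2 = 3.35 ± 0.48, edgeR adjusted p = 0.00624). DUSP4, a phosphatase that ERK induces and that acts back on it, was lower at 0.749 and 3.44 CPM in the ATUX clones against 12.8 and 31.4 CPM in the Sorafenib clones (log2 = -3.40 ± 0.87, edgeR adjusted p = 0.0330). PHLDA1, an abundant ERK target, stood at 524 and 518 CPM in the ATUX clones against 527 and 505 CPM in the Sorafenib clones (log2 = 0.02, 95% interval -0.48 to 0.51, edgeR adjusted p = 0.959). The AP-1 gene JUN was lower at 72.7 and 67.5 CPM in the ATUX clones against 163 and 157 CPM in the Sorafenib clones (log2 = -1.20 ± 0.14, edgeR adjusted p = 0.00414), a gene picked after its values were seen. Without the third ATUX libraries, EGR1 stood at 8.93 and 5.71 and DUSP4 at 0.450 and 2.70 CPM in ATUX8H and ATUX9D. DUSP4 lost its call without ATUX8H, Sor6G, Sor9H or SMAP8D, with only the 4 clones or with no low-count filter (edgeR adjusted p = 0.0555, 0.0713 and 0.0999 for the last 3). DUSP4 had an adjusted p of 1.37e-14 to 0.141 over its 16 alternatives. Members called higher numbered 1 without Sor6G, 5 by DESeq2 and 6 by limma-voom. Members called lower numbered 1 without Sor6G or Sor9H or with no low-count filter, 2 without ATUX9D and 8 by limma-voom.

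Genes of drug transport and metabolism held several of the largest differences. Of 21 tested, 6 were called higher and 4 lower in the ATUX clones (median log2 0.73). The efflux pump ABCG2, which exports many kinase inhibitors, stood at 105 to 345 CPM in the 6 ATUX libraries (median 174) and 1.85 to 4.93 CPM in the 6 Sorafenib libraries (median 2.74) (log2 = 5.92 ± 0.70, edgeR adjusted p = 0.00429). All 6 ATUX libraries lay above all 6 Sorafenib libraries, and ATUX9D stood above ATUX8H. ABCC2 and ABCC4, pumps for organic anions and drug conjugates, were higher in both ATUX clones too, at 4.42 and 13.3 CPM in the ATUX clones against 1.39 and 1.49 CPM in the Sorafenib clones for ABCC2 and 151 and 76.9 CPM in the ATUX clones against 40.1 and 43.3 CPM in the Sorafenib clones for ABCC4 (log2 = 2.64 ± 0.54 and 1.45 ± 0.30, edgeR adjusted p = 0.0168 and 0.0181). ABCC3, of the same family, stood at 325 and 97.3 CPM in the ATUX clones against 629 and 642 CPM in the Sorafenib clones, with ATUX9D far below the other 3 clones (log2 = -1.59, 95% interval -3.03 to -0.14, edgeR adjusted p = 0.0971). SLCO4A1, an organic anion carrier, was higher at 334 and 236 CPM in the ATUX clones against 37.8 and 89.2 CPM in the Sorafenib clones (log2 = 2.17 ± 0.39, edgeR adjusted p = 0.0120). ABCC2 lost its call without Sor6G or Sor9H or with only the 4 clones (edgeR adjusted p = 0.0859, 0.0930 and 0.0566). ABCC2 had an adjusted p of 2.65e-16 to 0.0930 over its 16 alternatives. Its log2 was 1.62 without ATUX9D. ABCC4 lost its call without Sor6G or Sor9H or with only the 4 clones (edgeR adjusted p = 0.0969, 0.0969 and 0.0617). ABCC4 had an adjusted p of 1.07e-17 to 0.0969 over its 16 alternatives. Its log2 was 0.87 without ATUX8H. SLCO4A1 lost its call with only the 4 clones (edgeR adjusted p = 0.0514). SLCO4A1 had an adjusted p of 5.00e-22 to 0.0514 over its 16 alternatives. Transporters called higher numbered 2 without Sor6G or Sor9H or with only the 4 clones and 11 by DESeq2. Transporters called lower numbered 2 without Sor6G or Sor9H or with only the 4 clones.

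The aryl hydrocarbon receptor AHR is a transcription factor that binds aromatic compounds and switches on CYP1 enzymes. AHR itself was lower in the ATUX clones, at 39.5 and 53.5 CPM in ATUX8H and ATUX9D, against 159 and 172 CPM in Sor6G and Sor9H (log2 = -1.82 ± 0.18, edgeR adjusted p = 0.00301). CYP1B1, a cytochrome P450 that is a target of AHR, went the other way: it stood at 252 to 936 CPM in the 6 ATUX libraries (median 364) and 0.0878 to 0.245 CPM in the 6 Sorafenib libraries (median 0.177) (log2 = 11.46 ± 0.42, edgeR adjusted p = 0.000712). For both genes the 6 ATUX libraries and the 6 Sorafenib libraries did not overlap, which for CYP1B1 was a condition for naming it by its fold change. GSTM3, a glutathione transferase, was higher at 72.6 and 91.6 CPM in the ATUX clones against 22.8 and 22.6 CPM in the Sorafenib clones (log2 = 1.86 ± 0.18, edgeR adjusted p = 0.00277). ALDH3A2, which oxidises fatty aldehydes, was lower at 66.9 and 108 CPM in the ATUX clones against 267 and 260.2 CPM in the Sorafenib clones (log2 = -1.59 ± 0.33, edgeR adjusted p = 0.0188), and GSTP1, the transferase of the pi class, stood at 249 and 215 CPM in the ATUX clones against 256 and 274 CPM in the Sorafenib clones (log2 = -0.19, 95% interval -0.53 to 0.16, edgeR adjusted p = 0.370). Of 25 tested, 5 were called higher and 5 lower in the ATUX clones (median log2 0.28). CYP1B1 without the third ATUX libraries stood at 256 and 364 CPM in ATUX8H and ATUX9D. CYP1B1 lost its call by limma-voom (adjusted p = 0.0577). CYP1B1 had an adjusted p of 7.74e-162 to 0.0577 over its 16 alternatives. ALDH3A2 lost its call without ATUX8H, Sor6G or Sor9H (edgeR adjusted p = 0.0532, 0.0696 and 0.0793). ALDH3A2 had an adjusted p of 8.18e-21 to 0.0793 over its 16 alternatives. These enzymes called lower numbered 2 without Sor9H and 3 without Sor6G.

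Genes of cholesterol synthesis were higher in the ATUX clones almost throughout. The enzymes are switched on together by the transcription factor SREBP2, the product of SREBF2, when sterols in the endoplasmic reticulum run low. Of 24 tested, 19 were called higher and 0 lower in the ATUX clones by edgeR, with 0 lower also at an unadjusted p under 0.05, by DESeq2 and by limma-voom (median log2 1.26). ACAT2, which makes the first intermediate from acetyl-CoA, stood at 87.5 and 127 CPM in the ATUX clones against 23.8 and 28.2 CPM in the Sorafenib clones (log2 = 2.06 ± 0.30, edgeR adjusted p = 0.00653). The sterol carrier STARD4 had the largest log2 difference of the list, at 9.31 and 9.14 CPM in the ATUX clones against 0.0615 and 0.339 CPM in the Sorafenib clones (log2 = 5.52 ± 0.76, edgeR adjusted p = 0.00584). SREBF2 was higher as well, at 154 and 209 CPM in the ATUX clones against 68.8 and 91.7 CPM in the Sorafenib clones (log2 = 1.19 ± 0.20, edgeR adjusted p = 0.00921). The 2 X-linked enzymes of the list, EBP and NSDHL, were called higher with ATUX8H above ATUX9D: EBP stood at 39.6 and 21.4 CPM in the ATUX clones against 6.29 and 7.01 CPM in the Sorafenib clones and NSDHL at 74.2 and 29.05 CPM in the ATUX clones against 9.98 and 10.7 CPM in the Sorafenib clones. Of the 3 members on chromosome 5, all 3 were called higher, and of the 21 elsewhere 16 were, with a median log2 of 1.25. NSDHL lost its call without Sor6G or Sor9H (edgeR adjusted p = 0.0684 and 0.0770). NSDHL had an adjusted p of 2.76e-22 to 0.0770 over its 16 alternatives. Its log2 was 1.49 without ATUX8H.

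The promoter of SREBF2 is shown because it alone, of 18 promoters of the list that could be matched by symbol, holds the sterol-response letters TCACNCCAC on either strand in the 250 bases before the gene's start (5.56%, against 0.883% of 35116 promoters, 310 in all). The sequence is from RefSeq (GRCh38.p14, chr22:41832855-41833104, plus strand), 5′ to 3′ along the gene, with the match in capitals 133 bases before the start. Where a gene had several promoter entries, the first was used.
SREBF2: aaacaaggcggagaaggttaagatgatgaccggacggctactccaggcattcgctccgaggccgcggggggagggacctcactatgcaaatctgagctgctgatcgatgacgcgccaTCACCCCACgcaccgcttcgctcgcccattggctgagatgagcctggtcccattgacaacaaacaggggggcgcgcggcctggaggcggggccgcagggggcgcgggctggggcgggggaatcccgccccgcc
A match is a description of letters and not of binding.

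Genes of fatty acid synthesis were often higher too, with exceptions. Of 22 tested, 11 were called higher and 2 lower in the ATUX clones (median log2 0.90). ACLY, which supplies acetyl-CoA from citrate, stood at 284 and 302 CPM in the ATUX clones against 82.4 and 79.2 CPM in the Sorafenib clones (log2 = 1.87 ± 0.11, edgeR adjusted p = 0.000881), a gene picked after its values were seen. Fatty acid synthase FASN stood at 409.6 to 1408 CPM in the 6 ATUX libraries (median 843) and 79.4 to 109 CPM in the 6 Sorafenib libraries (median 97.3) (log2 = 3.31 ± 0.30, edgeR adjusted p = 0.00262). The desaturase SCD stood at 1054 and 965 CPM in the ATUX clones against 164 and 261 CPM in the Sorafenib clones (log2 = 2.28 ± 0.36, edgeR adjusted p = 0.00851), and the desaturases of polyunsaturated fatty acids FADS1 and FADS2 at 248 and 353 CPM in the ATUX clones against 39.3 and 51.03 CPM in the Sorafenib clones and at 169 and 275 CPM in the ATUX clones against 8.76 and 16.5 CPM in the Sorafenib clones (log2 = 2.76 ± 0.34 and 4.17 ± 0.53, edgeR adjusted p = 0.00456 and 0.00491). Every ATUX library lay above every Sorafenib library for FASN, SCD, FADS1 and FADS2. MID1IP1, which helps the first enzyme of the path to polymerise, was lower at 9.07 and 8.41 CPM in the ATUX clones against 45.8 and 38.1 CPM in the Sorafenib clones (log2 = -2.26 ± 0.36, edgeR adjusted p = 0.00821). The elongase ELOVL6 stood at 6.28 and 0.135 CPM in the ATUX clones against 34.3 and 62.9 CPM in the Sorafenib clones, low in both ATUX clones and nearly absent from ATUX9D, and did not pass (log2 = -3.93, 95% interval -7.10 to -0.77, edgeR adjusted p = 0.0702). Fatty acid genes called higher numbered 7 without ATUX9D, Sor6G or Sor9H.

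The third ATUX libraries stood between the drugs in this pathway. SCD was at 466 and 329 CPM in the third ATUX8H and ATUX9D libraries, against 1279 to 1390.4 CPM in the other 4 ATUX libraries. FASN was at 409.6 and 868 CPM in the third ATUX8H and ATUX9D libraries, against 785 to 1408 CPM in the other 4 ATUX libraries, and FADS1 at 156 and 218 CPM in the third ATUX8H and ATUX9D libraries, against 290.5 to 427 CPM in the other 4 ATUX libraries. For SCD and FADS1 these libraries lay below all other ATUX libraries. Without these 2 libraries 12 fatty acid genes were called higher, against 11 with them, and 20 cholesterol genes, against 19. In sterol efflux, the oxysterol receptor NR1H3 was lower in the ATUX clones, at 12.1 and 7.59 CPM in the ATUX clones against 56.8 and 77.4 CPM in the Sorafenib clones (log2 = -2.76 ± 0.42, edgeR adjusted p = 0.00778). Of 11 tested, 1 was called higher and 3 lower in the ATUX clones (median log2 -0.06). Sterol efflux genes called higher numbered 0 without ATUX9D, Sor6G or Sor9H. Sterol efflux genes called lower numbered 1 without ATUX9D, Sor6G, Sor9H, SMAP8D or SMAP6G or with only the 4 clones and 5 by limma-voom.

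Genes of the integrated stress response were mostly lower in the ATUX clones. In this response, kinases that sense amino acid shortage, unfolded proteins or other stress slow translation and raise the transcription factor ATF4, which switches on genes for amino acid synthesis, amino acid import and tRNA charging. Of 23 tested, 2 were called higher and 15 lower in the ATUX clones (median log2 -1.37). Of the 3 members on chromosomes 7 and 15, where the median gene was also lower (given below), 2 were called lower. The 6 ATUX libraries lay below the 6 Sorafenib libraries for 15 of the 23 genes, where the same holds for 20.3% of all genes tested. ATF4 itself stood at 205 and 189 CPM in the ATUX clones against 372 and 321 CPM in the Sorafenib clones (log2 = -0.81 ± 0.15, edgeR adjusted p = 0.0120). The kinase EIF2AK4, also known as GCN2, which senses uncharged tRNA, stood at 60.6 and 60.1 CPM in the ATUX clones against 135 and 146 CPM in the Sorafenib clones (log2 = -1.21 ± 0.11, edgeR adjusted p = 0.00254), a gene picked after its values were seen. DDIT4, an inhibitor of mTORC1 that ATF4 induces, stood at 26.2 to 69.7 CPM in the 6 ATUX libraries (median 50.7) and 314 to 663 CPM in the 6 Sorafenib libraries (median 482) (log2 = -3.32 ± 0.50, edgeR adjusted p = 0.00771). SESN2, which restrains mTORC1 when leucine is short, stood at 27.3 and 13.6 CPM in the ATUX clones against 141 and 86.7 CPM in the Sorafenib clones (log2 = -2.49 ± 0.40, edgeR adjusted p = 0.00893), and TRIB3, a pseudokinase that acts back on ATF4, at 41.9 and 12.2 CPM in the ATUX clones against 293 and 194 CPM in the Sorafenib clones (log2 = -3.19 ± 0.58, edgeR adjusted p = 0.0127). CHAC1, which degrades glutathione, was lower at 9.95 and 3.71 CPM in the ATUX clones against 61.9 and 18.1 CPM in the Sorafenib clones, with the clones of each drug far apart (log2 = -2.57 ± 0.75, edgeR adjusted p = 0.0481). ATF4 lost its call without Sor6G (edgeR adjusted p = 0.0577). ATF4 had an adjusted p of 4.46e-14 to 0.0577 over its 16 alternatives. TRIB3 lost its call without Sor6G or with no low-count filter (edgeR adjusted p = 0.0535 and 0.0560). TRIB3 had an adjusted p of 4.94e-10 to 0.0560 over its 16 alternatives. CHAC1 lost its call without ATUX8H, ATUX9D, Sor6G, Sor9H, SMAP8D, SMAP9C or SMAP6G, with only the 4 clones, with no low-count filter or without the third Sor9H library (edgeR adjusted p = 0.0621, 0.185, 0.223, 0.0543, 0.0764, 0.0630, 0.0571, 0.0964, 0.167 and 0.0511). CHAC1 had an adjusted p of 1.99e-09 to 0.223 over its 16 alternatives. Its log2 was -1.43 without Sor6G. Stress response genes called higher numbered 1 without ATUX8H, ATUX9D, Sor6G or Sor9H, with no low-count filter or with only the 4 clones. Stress response genes called lower numbered 7 without Sor6G.

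The promoters of CHAC1 and ASNS are shown as the called stress response genes with the largest log2 differences whose 250 bases before the start hold the letters TGATGNAA, the core that ATF4 shares with C/EBP partners, on either strand. Of 36 matched promoters of both stress response lists 5 hold it (13.9%, 4 of the 26 called), against 3.14% of 35116 promoters. Sequences are from RefSeq (GRCh38.p14; CHAC1 chr15:40953221-40953470, plus strand; ASNS chr7:97872409-97872658, minus strand), 5′ to 3′ along each gene, with the match in capitals, 209 bases before the start of CHAC1 and 68 before that of ASNS.
CHAC1: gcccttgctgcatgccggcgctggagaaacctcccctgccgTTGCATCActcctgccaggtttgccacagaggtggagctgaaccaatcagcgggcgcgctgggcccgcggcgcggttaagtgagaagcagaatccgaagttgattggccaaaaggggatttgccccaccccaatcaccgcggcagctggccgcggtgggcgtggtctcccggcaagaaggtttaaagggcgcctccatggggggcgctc
ASNS: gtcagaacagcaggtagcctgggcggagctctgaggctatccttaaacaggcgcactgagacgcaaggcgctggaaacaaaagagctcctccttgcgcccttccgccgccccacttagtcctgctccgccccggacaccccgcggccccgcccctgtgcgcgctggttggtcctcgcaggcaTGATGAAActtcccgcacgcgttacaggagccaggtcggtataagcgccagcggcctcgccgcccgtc
In CHAC1 the match lies on the other strand and reads as its reverse complement.

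Genes of amino acid supply, many of which ATF4 controls, were mostly lower too. Of 20 tested, 1 was called higher and 12 lower in the ATUX clones (median log2 -1.20). Asparagine synthetase ASNS stood at 80.6 to 185 CPM in the 6 ATUX libraries (median 113) and 466 to 695 CPM in the 6 Sorafenib libraries (median 579) (log2 = -2.37 ± 0.24, edgeR adjusted p = 0.00292). PSAT1, of serine synthesis, stood at 111 and 61.1 CPM in the ATUX clones against 527 and 379.8 CPM in the Sorafenib clones (log2 = -2.41 ± 0.39, edgeR adjusted p = 0.00904), and PHGDH, the first enzyme of that path, at 44.02 and 9.52 CPM in the ATUX clones against 392 and 327 CPM in the Sorafenib clones (log2 = -3.76 ± 0.78, edgeR adjusted p = 0.0179). ALDH1L2, a folate enzyme of mitochondria, stood at 8.40 and 1.36 CPM in the ATUX clones against 184 and 136 CPM in the Sorafenib clones (log2 = -5.06 ± 0.89, edgeR adjusted p = 0.0114). In all 4, ATUX9D lay below ATUX8H and both below the Sorafenib clones. The cystine importer SLC7A11 was lower at 55.3 and 35.6 CPM in the ATUX clones against 266 and 242 CPM in the Sorafenib clones (log2 = -2.50 ± 0.28, edgeR adjusted p = 0.00377). SLC7A5, the importer of large neutral amino acids, was the exception at 527 and 1029 CPM in the ATUX clones against 329 and 197 CPM in the Sorafenib clones (log2 = 1.56 ± 0.44, edgeR adjusted p = 0.0449), and SLC38A2, which takes up small neutral ones, stood at 737 and 1063 CPM in the ATUX clones against 652 and 829 CPM in the Sorafenib clones (log2 = 0.28, 95% interval -0.29 to 0.86, edgeR adjusted p = 0.416). PHGDH lost its call without Sor6G or Sor9H or with no low-count filter (edgeR adjusted p = 0.0632, 0.0662 and 0.0880). PHGDH had an adjusted p of 3.73e-11 to 0.0880 over its 16 alternatives. ALDH1L2 without the third ATUX libraries stood at 5.52 and 0.931 CPM in ATUX8H and ATUX9D. ALDH1L2 lost its call with no low-count filter (edgeR adjusted p = 0.0600). ALDH1L2 had an adjusted p of 8.61e-13 to 0.0600 over its 16 alternatives. SLC7A5 lost its call without ATUX9D, Sor6G, Sor9H, SMAP8D or SMAP6G, with only the 4 clones, with no low-count filter or without the third ATUX libraries (edgeR adjusted p = 0.176, 0.0835, 0.214, 0.0691, 0.0552, 0.0758, 0.129 and 0.0506). SLC7A5 had an adjusted p of 3.44e-12 to 0.214 over its 16 alternatives. Its log2 was 0.99 without ATUX9D. Amino acid genes called higher numbered 0 without ATUX9D, Sor6G, Sor9H, SMAP8D or SMAP6G, with no low-count filter, with only the 4 clones or without the third ATUX libraries. Amino acid genes called lower numbered 6 without Sor6G and 7 without ATUX9D.

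The third ATUX libraries were the highest of their clones for ASNS and SLC7A11. ASNS was at 185 and 116 CPM in the third ATUX8H and ATUX9D libraries, against 80.6 to 114 CPM in the other 4 ATUX libraries, and SLC7A11 at 90.5 and 46.5 CPM in the third ATUX8H and ATUX9D libraries, against 27.9 to 39.4 CPM in the other 4 ATUX libraries. Even so they lay below every Sorafenib library. Without the 2 libraries 15 stress response genes were called lower, against 15 with them, and 13 amino acid genes, against 12.

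The aminoacyl-tRNA synthetases, which load amino acids onto tRNA, split by gene. Of 20 tested, 6 were called higher and 8 lower in the ATUX clones (median log2 -0.20). AARS, the alanine enzyme, stood at 203 and 187 CPM in the ATUX clones against 556 and 439 CPM in the Sorafenib clones (log2 = -1.35 ± 0.15, edgeR adjusted p = 0.00377), and WARS, the tryptophan enzyme, at 103 and 73.7 CPM in the ATUX clones against 335 and 243 CPM in the Sorafenib clones (log2 = -1.71 ± 0.23, edgeR adjusted p = 0.00559). GARS, MARS and EPRS had log2 values of -1.19, -1.14 and -1.13 (edgeR adjusted p = 0.00599, 0.00895 and 0.00460). HARS, the histidine enzyme, was higher at 103 and 115 CPM in the ATUX clones against 45.2 and 45.99 CPM in the Sorafenib clones (log2 = 1.26 ± 0.14, edgeR adjusted p = 0.00349). HARS lies on chromosome 5, which holds 4 of the 20 genes and 2 of the 6 called higher. Synthetases called higher numbered 2 without Sor6G or Sor9H and 3 without ATUX9D.

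Protein folding genes were counted by compartment. Of the chaperones and sensors of the endoplasmic reticulum, 6 were called higher and 3 lower of 23 tested (median log2 0.04). Calnexin (CANX) was higher at 1022 and 1140.2 CPM in the ATUX clones against 543 and 441 CPM in the Sorafenib clones (log2 = 1.14 ± 0.15, edgeR adjusted p = 0.00491). CANX is the 1 member of this list tested on chromosome 5, where the median gene was also higher (given below). ERN1, the sensor IRE1, was lower at 10.4 and 7.23 CPM in the ATUX clones against 67.3 and 36.3 CPM in the Sorafenib clones (log2 = -2.56 ± 0.33, edgeR adjusted p = 0.00502), and so was HERPUD1, which helps clear unfolded proteins, at 31.1 and 26.1 CPM in the ATUX clones against 55.3 and 57.4 CPM in the Sorafenib clones (log2 = -0.98 ± 0.14, edgeR adjusted p = 0.00584). HSP90B1, an abundant chaperone of this compartment, stood at 875 and 1021 CPM in the ATUX clones against 914 and 683 CPM in the Sorafenib clones (log2 = 0.26, 95% interval -0.24 to 0.76, edgeR adjusted p = 0.389). Of 17 cytosolic and mitochondrial heat shock genes, 9 were called higher and 0 lower by edgeR, with 0 lower also at an unadjusted p under 0.05, by DESeq2 and by limma-voom (median log2 0.73). HSPA4 and HSPH1, which recharge HSP70 with ATP, stood at 387 and 413 CPM in the ATUX clones against 157 and 153 CPM in the Sorafenib clones and at 269 and 225 CPM in the ATUX clones against 133 and 114 CPM in the Sorafenib clones (log2 = 1.38 ± 0.14 and 1.01 ± 0.14, edgeR adjusted p = 0.00292 and 0.00584). HSPA4 is the 1 heat shock gene tested on chromosome 5. Fewer reticulum chaperones and heat shock genes were called higher without Sor6G or Sor9H.

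**Figure D3:**
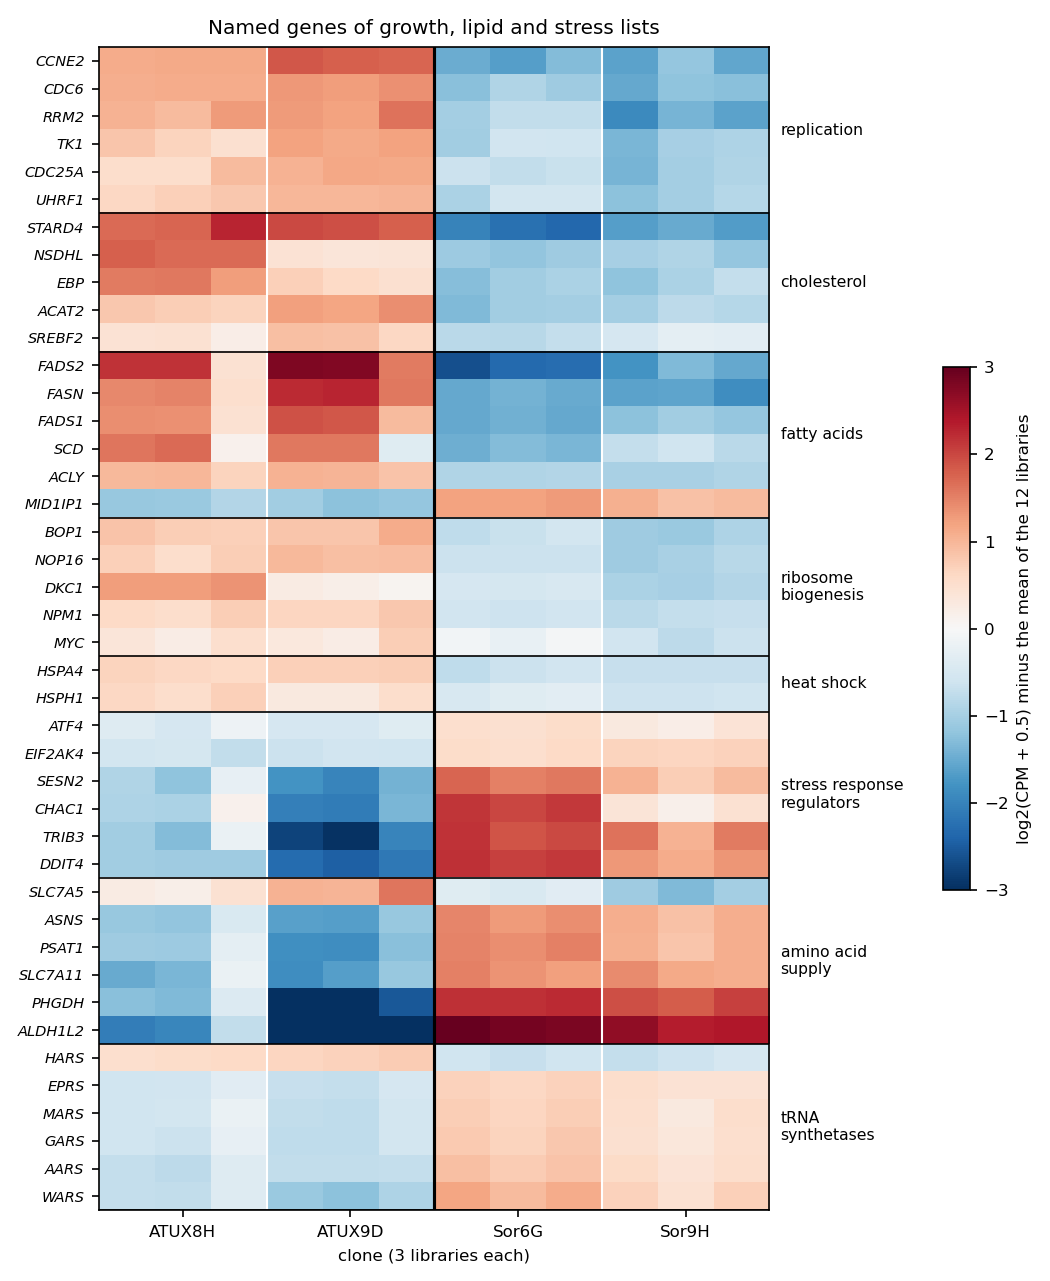
Heat map of the called genes described in the text from the lists of replication, lipid synthesis, ribosome biogenesis, heat shock, stress response, amino acid supply and tRNA charging (rows) in the 6 ATUX and 6 Sorafenib libraries (columns, grouped by clone). Colour gives log2 of CPM plus 0.5 minus the mean of the gene over the 12 libraries, cut at 3 in either direction; the third library of each ATUX clone is paler than the other 2 for FADS2, FASN, FADS1, SCD, ASNS, PSAT1 and SLC7A11.

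DNA replication genes were higher in the ATUX clones. Of 43 tested, 34 were called higher and 0 lower in the ATUX clones by edgeR, with 0 lower also at an unadjusted p under 0.05, by DESeq2 and by limma-voom (median log2 1.31). CCNE2, a cyclin that drives entry into S phase, stood at 35.5 and 56.8 CPM in the ATUX clones against 5.40 and 5.63 CPM in the Sorafenib clones (log2 = 3.07 ± 0.42, edgeR adjusted p = 0.00584). CDC6, which loads the replicative helicase onto origins, stood at 61.2 to 73.6 CPM in the 6 ATUX libraries (median 64.7) and 9.35 to 14.8 CPM in the 6 Sorafenib libraries (median 11.8) (log2 = 2.46 ± 0.22, edgeR adjusted p = 0.00260). RRM2, the regulated subunit of ribonucleotide reductase, stood at 443 and 539 CPM in the ATUX clones against 117 and 67.1 CPM in the Sorafenib clones (log2 = 2.42 ± 0.32, edgeR adjusted p = 0.00529), and thymidine kinase TK1 at 114 and 163 CPM in the ATUX clones against 43.4 and 33.3 CPM in the Sorafenib clones (log2 = 1.87 ± 0.24, edgeR adjusted p = 0.00481). The 6 ATUX libraries lay above the 6 Sorafenib libraries for 41 of the 43 genes, where the same holds for 19.3% of all genes tested. The summed level of the 43 genes was 3215 CPM in ATUX8H and 4156 CPM in ATUX9D, against 1631 CPM in Sor6G and 1349.7 CPM in Sor9H. Replication genes called higher numbered 12 without Sor9H.

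CDC25A, a phosphatase that switches on cyclin-dependent kinases, and UHRF1, which keeps DNA methylation through replication, are shown as the called replication genes with the largest log2 differences whose 250 bases before the start hold an E2F motif, TTTCGCGC, TTTGGCGC or TTTCCCGC, on either strand. Of 38 matched replication promoters 15 hold one (39.5%, 12 of the 29 called), against 2.32% of 35116 promoters. CDC25A stood at 20.7 and 28.02 CPM in the ATUX clones against 7.72 and 5.67 CPM in the Sorafenib clones (log2 = 1.87 ± 0.31, edgeR adjusted p = 0.00923) and UHRF1 at 41.9 and 51.4 CPM in the ATUX clones against 15.7 and 12.2 CPM in the Sorafenib clones (log2 = 1.76 ± 0.20, edgeR adjusted p = 0.00378). CDC25A lost its call without Sor9H (edgeR adjusted p = 0.0602). CDC25A had an adjusted p of 2.14e-15 to 0.0602 over its 16 alternatives. Sequences are from RefSeq (GRCh38.p14; CDC25A chr3:48188418-48188667, minus strand; UHRF1 chr19:4909251-4909500, plus strand), 5′ to 3′ along each gene, with the match in capitals, 44 bases before the start of CDC25A and 14 before that of UHRF1.
CDC25A: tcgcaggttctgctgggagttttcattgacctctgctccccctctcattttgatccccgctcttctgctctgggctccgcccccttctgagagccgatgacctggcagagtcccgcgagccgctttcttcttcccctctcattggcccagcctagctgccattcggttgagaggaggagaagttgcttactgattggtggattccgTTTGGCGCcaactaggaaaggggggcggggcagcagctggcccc
UHRF1: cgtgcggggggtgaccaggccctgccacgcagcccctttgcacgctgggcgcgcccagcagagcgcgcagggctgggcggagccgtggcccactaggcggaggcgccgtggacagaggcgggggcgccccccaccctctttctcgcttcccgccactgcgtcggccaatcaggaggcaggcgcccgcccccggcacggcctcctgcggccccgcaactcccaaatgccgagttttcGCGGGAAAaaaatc
The match in UHRF1 lies on the other strand and reads GCGGGAAA along the gene.

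Of the mitosis genes fewer were called. Of 30 tested, 3 were called higher and 0 lower in the ATUX clones by edgeR, with 0 lower also at an unadjusted p under 0.05, by DESeq2 and by limma-voom (median log2 0.52), although all 30 log2 values were above 0. CCNB1, the mitotic cyclin, stood at 232 and 287 CPM in the ATUX clones against 145 and 75.2 CPM in the Sorafenib clones (log2 = 1.25 ± 0.30, edgeR adjusted p = 0.0282). Sor6G lay well above Sor9H. TOP2A, which untangles chromosomes, stood at 671 and 758 CPM in the ATUX clones against 446 and 208 CPM in the Sorafenib clones (log2 = 1.13, 95% interval 0.31 to 1.95, edgeR adjusted p = 0.0527). CCNB1 lost its call without ATUX9D or Sor9H or with only the 4 clones (edgeR adjusted p = 0.0991, 0.0643 and 0.0796). CCNB1 had an adjusted p of 5.93e-18 to 0.0991 over its 16 alternatives. Mitosis genes called higher numbered 0 without ATUX9D or Sor9H or with only the 4 clones, 1 without SMAP6G, 8 by DESeq2, 15 without Sor6G and 16 by limma-voom. The inhibitors of cyclin-dependent kinases differed in opposite directions. p21 (CDKN1A) was higher at 134 and 142 CPM in the ATUX clones against 50.6 and 45.3 CPM in the Sorafenib clones (log2 = 1.54 ± 0.26, edgeR adjusted p = 0.00960) and p27 (CDKN1B) lower at 40.4 and 46.2 CPM in the ATUX clones against 122 and 146 CPM in the Sorafenib clones (log2 = -1.63 ± 0.15, edgeR adjusted p = 0.00265). Cyclin D1 (CCND1) stood at 309 and 462 CPM in the ATUX clones against 291 and 420.3 CPM in the Sorafenib clones (log2 = 0.13, 95% interval -0.68 to 0.93, edgeR adjusted p = 0.806). Of 14 tested, 3 were called higher and 2 lower in the ATUX clones (median log2 0.10). CDKN1A lost its call without Sor9H (edgeR adjusted p = 0.0697). CDKN1A had an adjusted p of 2.06e-12 to 0.0697 over its 16 alternatives. These cycle regulators called higher numbered 0 without Sor9H, 1 without ATUX9D and 6 by DESeq2 or by limma-voom. These cycle regulators called lower numbered 1 without ATUX9D or Sor9H.

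Ribosome biogenesis genes that were called all differed one way. Of 31 tested, 25 were called higher and 0 lower in the ATUX clones by edgeR, with 0 lower also at an unadjusted p under 0.05, by DESeq2 and by limma-voom (median log2 0.66). BOP1, which matures the large subunit RNA, stood at 109 and 122 CPM in the ATUX clones against 40.1 and 30.9 CPM in the Sorafenib clones (log2 = 1.71 ± 0.15, edgeR adjusted p = 0.00254), NOP16, a nucleolar protein, at 43.99 and 53.3 CPM in the ATUX clones against 17.5 and 13.99 CPM in the Sorafenib clones (log2 = 1.63 ± 0.18, edgeR adjusted p = 0.00341), and NPM1, an abundant nucleolar chaperone with many pseudogenes, at 990.2 and 1044 CPM in the ATUX clones against 426 and 385 CPM in the Sorafenib clones (log2 = 1.33 ± 0.13, edgeR adjusted p = 0.00300). MYC, a driver of these genes, stood at 79.4 and 83.2 CPM in the ATUX clones against 56.3 and 38.4 CPM in the Sorafenib clones (log2 = 0.78 ± 0.18, edgeR adjusted p = 0.0252), and was picked after its values were seen. NPM1 and NOP16 lie on chromosome 5. All 3 list members there were called higher and 22 of the 28 elsewhere. MYC lost its call without ATUX8H, ATUX9D or Sor9H or with only the 4 clones (edgeR adjusted p = 0.0539, 0.0825, 0.0797 and 0.0768). MYC had an adjusted p of 9.33e-12 to 0.0825 over its 16 alternatives. Its log2 was 0.51 without Sor9H. Ribosome biogenesis genes called higher numbered 12 with only the 4 clones and were fewer without ATUX9D, Sor6G or Sor9H.

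Epithelial genes were higher in the ATUX clones where they differed most, but with wide gaps between clones. Of 38 tested, 13 were called higher and 4 lower in the ATUX clones (median log2 0.92). The desmosomal cadherins DSC2 and DSG2, which bolt epithelial cells together, stood at 64.8 and 121 CPM in the ATUX clones against 0.0117 and 0.0735 CPM in the Sorafenib clones and at 103 and 196 CPM in the ATUX clones against 0.282 and 0.176 CPM in the Sorafenib clones (log2 = 11.06 ± 1.03 and 9.35 ± 1.49, edgeR adjusted p = 0.00269 and 0.00867). Occludin (OCLN), of tight junctions, stood at 26.3 and 37.7 CPM in the ATUX clones against 3.20 and 2.27 CPM in the Sorafenib clones (log2 = 3.55 ± 0.30, edgeR adjusted p = 0.00237), and was picked after its values were seen. Cadherin genes split the ATUX clones: E-cadherin (CDH1), the adhesion molecule of epithelia, stood at 76.2 and 7.14 CPM in the ATUX clones against 1.27 and 0.163 CPM in the Sorafenib clones, P-cadherin (CDH3) at 57.99 and 9.14 CPM in the ATUX clones against 0.218 and 0.118 CPM in the Sorafenib clones, and N-cadherin (CDH2), typical of mesenchymal cells, at 6.89 and 96.2 CPM in the ATUX clones against 0.226 and 1.28 CPM in the Sorafenib clones. ATUX8H thus held more CDH1 and CDH3 and ATUX9D more CDH2, and both held more of each than the Sorafenib clones. DSG2 lost its call without Sor6G or Sor9H (edgeR adjusted p = 0.0569 and 0.0712). DSG2 had an adjusted p of 2.77e-25 to 0.0712 over its 16 alternatives. CDH1 lost its call without ATUX8H, Sor6G, Sor9H or SMAP8D, with only the 4 clones, with no low-count filter or by limma-voom (adjusted p = 0.116, 0.0818, 0.157, 0.0598, 0.0764, 0.157 and 0.176). CDH1 had an adjusted p of 4.05e-08 to 0.176 over its 16 alternatives. Its log2 was 3.35 without ATUX8H. CDH3 lost its call without Sor6G or Sor9H, with no low-count filter or by limma-voom (adjusted p = 0.0585, 0.0752, 0.0516 and 0.102). CDH3 had an adjusted p of 3.69e-11 to 0.102 over its 16 alternatives. CDH2 lost its call without ATUX9D, Sor6G, Sor9H, SMAP8D or SMAP6G, with only the 4 clones, with no low-count filter or by limma-voom (adjusted p = 0.150, 0.165, 0.120, 0.0577, 0.0606, 0.0764, 0.170 and 0.0951). CDH2 had an adjusted p of 1.70e-20 to 0.170 over its 16 alternatives. Its log2 was 3.20 without ATUX9D. Epithelial genes called higher numbered 3 without Sor9H, 4 without Sor6G and 8 without ATUX8H. Epithelial genes called lower numbered 1 without ATUX9D or Sor9H, 2 without Sor6G or with no low-count filter and 9 by limma-voom.

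Mesenchymal genes divided. Of 21 tested, 7 were called higher and 4 lower in the ATUX clones (median log2 0.17). Vimentin (VIM), the intermediate filament of mesenchymal cells, stood at 3273 and 3319 CPM in the ATUX clones against 2546 and 2585 CPM in the Sorafenib clones (log2 = 0.37, 95% interval -0.00113 to 0.74, edgeR adjusted p = 0.124). The transcription factors that repress epithelial genes went different ways: SNAI1 stood at 14.5 and 19.2 CPM in the ATUX clones against 4.46 and 5.61 CPM in the Sorafenib clones (log2 = 1.76 ± 0.22, edgeR adjusted p = 0.00464), SNAI2 at 0.223 and 0.0784 CPM in the ATUX clones against 4.70 and 3.08 CPM in the Sorafenib clones (log2 = -4.68 ± 0.78, edgeR adjusted p = 0.00921) and ZEB2 at 3.01 and 2.56 CPM in the ATUX clones against 0.107 and 0.0885 CPM in the Sorafenib clones (log2 = 4.80 ± 0.76, edgeR adjusted p = 0.00798), all 3 picked after their values were seen. PRRX1, a homeobox factor of mesenchyme, was close to silent in the ATUX clones at 0.381 and 0.167 CPM in the ATUX clones against 22.1 and 47.7 CPM in the Sorafenib clones (log2 = -6.99 ± 1.60, edgeR adjusted p = 0.0239). Without the third ATUX libraries, SNAI2 stood at 0.0429 and 0.118 and ZEB2 at 1.71 and 2.18 CPM in ATUX8H and ATUX9D. ZEB2 lost its call without Sor6G or Sor9H (edgeR adjusted p = 0.0507 and 0.0636). ZEB2 had an adjusted p of 1.54e-12 to 0.0636 over its 16 alternatives. PRRX1 lost its call without ATUX8H, ATUX9D, Sor6G or Sor9H or with no low-count filter (edgeR adjusted p = 0.0839, 0.120, 0.0591, 0.0924 and 0.113). PRRX1 had an adjusted p of 4.24e-22 to 0.120 over its 16 alternatives. Mesenchymal genes called higher numbered 3 without Sor6G or Sor9H.

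Matrix genes included some of the most abundant transcripts lower in the ATUX clones. Of 38 tested, 3 were called higher and 7 lower in the ATUX clones (median log2 -0.25). Fibronectin (FN1) stood at 9.96 to 44.05 CPM in the 6 ATUX libraries (median 16.4) and 789 to 1230.0 CPM in the 6 Sorafenib libraries (median 1125) (log2 = -5.49 ± 0.75, edgeR adjusted p = 0.00593). The collagen VI chain COL6A2 stood at 63.8 and 48.8 CPM in the ATUX clones against 503 and 379.8 CPM in the Sorafenib clones (log2 = -2.96 ± 0.29, edgeR adjusted p = 0.00279), and was picked after its values were seen. Lysyl oxidase LOX, which crosslinks collagen, stood at 0.579 and 1.49 CPM in the ATUX clones against 15.8 and 35.6 CPM in the Sorafenib clones (log2 = -4.63 ± 0.59, edgeR adjusted p = 0.00501), and TIMP2, an inhibitor of matrix metalloproteinases, at 26.3 and 12.9 CPM in the ATUX clones against 148 and 389 CPM in the Sorafenib clones (log2 = -3.77 ± 0.61, edgeR adjusted p = 0.00895). Tenascin C (TNC) was the other way round at 13.01 and 2.55 CPM in the ATUX clones against 0.0487 and 0.0589 CPM in the Sorafenib clones (log2 = 7.08 ± 1.57, edgeR adjusted p = 0.0219). Type III collagen (COL3A1) stood at 1.08 and 23.2 CPM in the ATUX clones against 52.7 and 139 CPM in the Sorafenib clones, which parted clones as much as drugs (log2 = -2.93, 95% interval -6.57 to 0.71, edgeR adjusted p = 0.194). Of the fibroblast markers, whose sums were given above, 8 were tested, and 1 was called higher and 1 lower in the ATUX clones. THY1 was higher, at 5.58 and 6.11 CPM in the ATUX clones against 0.332 and 0.133 CPM in the Sorafenib clones (log2 = 4.64 ± 1.03, edgeR adjusted p = 0.0221). The lower one was PDGFRA, whose values were given with the kinases. The part of fibroblasts in the matrix values was not tested. TNC lost its call without ATUX8H, Sor6G or Sor9H, with no low-count filter or by limma-voom (adjusted p = 0.0645, 0.114, 0.125, 0.109 and 0.305). TNC had an adjusted p of 9.63e-09 to 0.305 over its 16 alternatives. THY1 lost its call without ATUX9D, Sor6G or Sor9H or with no low-count filter (edgeR adjusted p = 0.0600, 0.0785, 0.127 and 0.0689). THY1 had an adjusted p of 4.45e-16 to 0.127 over its 16 alternatives. Matrix genes called higher numbered 1 without ATUX8H, Sor6G or Sor9H, with no low-count filter or by limma-voom and 6 by DESeq2. Matrix genes called lower numbered 4 without ATUX9D.

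**Figure D4:**
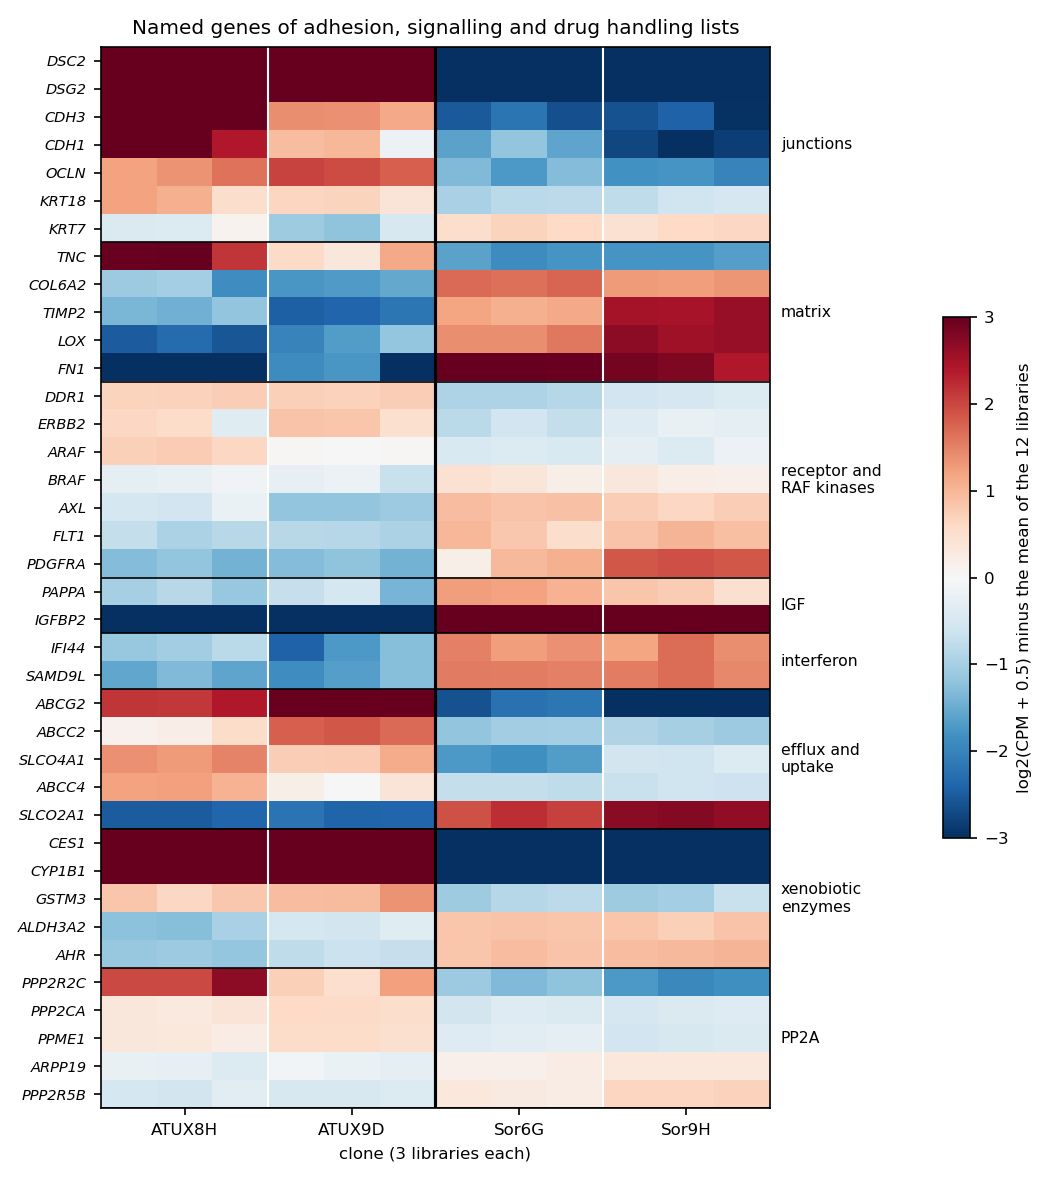
Heat map of the called genes described in the text from the lists of junctions, matrix, receptor and RAF kinases, insulin-like growth factors, interferon response, drug transport, drug metabolism and PP2A (rows) in the 6 ATUX and 6 Sorafenib libraries (columns, grouped by clone). Colour gives log2 of CPM plus 0.5 minus the mean of the gene over the 12 libraries, cut at 3 in either direction; CDH1, CDH3 and TNC are darker in ATUX8H than in ATUX9D, while DSC2, DSG2, CES1, CYP1B1 and IGFBP2 reach the colour limit in both clones of each drug.

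Signalling genes of the TGF-beta, WNT, YAP and insulin-like growth factor pathways differed one by one. For TGF-beta and BMP, 8 were called higher and 6 lower of 43 (median log2 -0.07). NOG, a secreted BMP antagonist, stood at 3.56 and 2.78 CPM in the ATUX clones against 49.4 and 113 CPM in the Sorafenib clones (log2 = -4.68 ± 0.51, edgeR adjusted p = 0.00368), and FSTL1, another secreted binder of this family, at 12.2 and 16.2 CPM in the ATUX clones against 97.2 and 227 CPM in the Sorafenib clones (log2 = -3.50 ± 0.51, edgeR adjusted p = 0.00687). SMAD7, a feedback inhibitor, was higher at 30.4 and 38.1 CPM in the ATUX clones against 10.7 and 10.03 CPM in the Sorafenib clones (log2 = 1.74 ± 0.32, edgeR adjusted p = 0.0126), and SMAD3, a signal carrier, stood at 561 and 518 CPM in the ATUX clones against 652 and 592 CPM in the Sorafenib clones (log2 = -0.20, 95% interval -0.52 to 0.13, edgeR adjusted p = 0.326). SMAD7 lost its call without Sor6G or Sor9H (edgeR adjusted p = 0.0598 and 0.0781). SMAD7 had an adjusted p of 1.31e-14 to 0.0781 over its 16 alternatives. TGF-beta genes called higher numbered 0 without Sor6G or Sor9H, 3 without ATUX9D, 4 with only the 4 clones and 5 without SMAP9C. TGF-beta genes called lower numbered 2 without Sor9H, 10 by DESeq2 and 11 by limma-voom.

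For WNT, 5 were called higher and 6 lower of 30 (median log2 0.20). LEF1 had reads in the ATUX clones and none in the Sorafenib clones, while its relatives TCF7 and TCF7L2 were lower in the ATUX clones, at 47.03 and 35.3 CPM in the ATUX clones against 107 and 130.0 CPM in the Sorafenib clones for TCF7 and 44.6 and 35.6 CPM in the ATUX clones against 79.6 and 122 CPM in the Sorafenib clones for TCF7L2 (log2 = -1.51 ± 0.29 and -1.32 ± 0.24, edgeR adjusted p = 0.0142 and 0.0124). AXIN2, a feedback target of the pathway, was higher at 2.42 and 2.304 CPM in the ATUX clones against 0.158 and 0.0735 CPM in the Sorafenib clones (log2 = 4.32 ± 0.69, edgeR adjusted p = 0.00821), and was picked after its values were seen. The antagonist DKK1 was higher at 715 and 816 CPM in the ATUX clones against 282 and 316 CPM in the Sorafenib clones (log2 = 1.37 ± 0.27, edgeR adjusted p = 0.0145), and the receptor TNFRSF19 lower at 4.18 and 5.63 CPM in the ATUX clones against 43.98 and 72.9 CPM in the Sorafenib clones (log2 = -3.56 ± 0.31, edgeR adjusted p = 0.00240). TCF7 lost its call without ATUX9D or Sor9H (edgeR adjusted p = 0.0608 and 0.0770). TCF7 had an adjusted p of 3.46e-10 to 0.0770 over its 16 alternatives. TCF7L2 lost its call without ATUX9D or Sor9H (edgeR adjusted p = 0.0537 and 0.0579). TCF7L2 had an adjusted p of 5.89e-19 to 0.0579 over its 16 alternatives. AXIN2 lost its call without Sor9H (edgeR adjusted p = 0.0586). AXIN2 had an adjusted p of 4.15e-12 to 0.0586 over its 16 alternatives. DKK1 lost its call without Sor6G or Sor9H (edgeR adjusted p = 0.0736 and 0.0697). DKK1 had an adjusted p of 3.59e-19 to 0.0736 over its 16 alternatives. TNFRSF19 without the third ATUX libraries stood at 2.70 and 6.20 CPM in ATUX8H and ATUX9D. WNT genes called higher numbered 2 without Sor6G or Sor9H, 3 with only the 4 clones and 8 by limma-voom. WNT genes called lower numbered 3 without ATUX9D or Sor9H and 10 by limma-voom.

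Of 24 YAP and TEAD genes, 7 were called higher and 6 lower (median log2 0.31). The DNA-binding partner TEAD3 was lower at 10.3 and 9.22 CPM in the ATUX clones against 28.2 and 37.3 CPM in the Sorafenib clones (log2 = -1.74 ± 0.18, edgeR adjusted p = 0.00332). Of 18 genes of the insulin-like growth factor system, 1 was called higher and 6 lower (median log2 -0.43). PAPPA, a protease that frees these factors from their binding proteins, stood at 11.5 and 12.9 CPM in the ATUX clones against 52.8 and 37.98 CPM in the Sorafenib clones (log2 = -1.88 ± 0.29, edgeR adjusted p = 0.00730). IGF2R, which clears IGF2, stood at 467 and 423 CPM in the ATUX clones against 588 and 468 CPM in the Sorafenib clones (log2 = -0.24, 95% interval -0.68 to 0.20, edgeR adjusted p = 0.370). Fewer YAP genes were called higher without Sor6G or Sor9H, and lower without ATUX8H or Sor9H. Growth factor genes called higher numbered 0 without ATUX8H, Sor6G, Sor9H or SMAP8D or with only the 4 clones and 2 by DESeq2 or without the third Sor9H library. Growth factor genes called lower numbered 3 without Sor9H or SMAP6G.

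HOX genes, which set position along the body, showed a local break. Over all clusters, 3 of 28 were called higher and 9 lower (median log2 -0.43). Of the 8 members tested on chromosomes 7 and 15, 5 were called lower and 0 higher. The median gene of those chromosomes was also lower in the ATUX clones (given below). HOXC12 (ENSG00000123407, GRCh38 chromosome 12, 53954834 to 53958956, plus strand) stood at 0.0844 to 1.54 CPM in the 6 ATUX libraries (median 0.324) and 126 to 172 CPM in the 6 Sorafenib libraries (median 158) (log2 = -8.14 ± 0.88, edgeR adjusted p = 0.00368). Its neighbours on the chromosome were not lower with it. HOXC13 stood at 66.9 and 30.5 CPM in the ATUX clones against 37.6 and 30.3 CPM in the Sorafenib clones (edgeR adjusted p = 0.419), and HOXC11 at 24.6 and 16.1 CPM in the ATUX clones against 12.5 and 15.8 CPM in the Sorafenib clones (edgeR adjusted p = 0.165). HOXC10, next in the row, was higher in the ATUX clones at 149 and 134 CPM in the ATUX clones against 72.5 and 81.5 CPM in the Sorafenib clones (log2 = 0.89 ± 0.19, edgeR adjusted p = 0.0179), and HOXC4 lower at 25.1 and 23.4 CPM in the ATUX clones against 49.5 and 65.2 CPM in the Sorafenib clones (log2 = -1.23 ± 0.16, edgeR adjusted p = 0.00506). HOXC10 lost its call without ATUX8H, Sor6G or Sor9H (edgeR adjusted p = 0.0571, 0.0991 and 0.0791). HOXC10 had an adjusted p of 3.23e-13 to 0.0991 over its 16 alternatives. HOX genes called higher numbered 0 without Sor6G or Sor9H and 1 without ATUX8H or ATUX9D or with only the 4 clones. HOX genes called lower numbered 3 without Sor9H and 4 without Sor6G.

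Interferon response genes were called lower in the ATUX clones more often than higher. These genes are switched on by interferons or by foreign nucleic acid and restrain viruses and cell growth. Of 40 tested, 1 was called higher and 14 lower in the ATUX clones (median log2 -0.51). SAMD9L, which restrains translation and growth, stood at 6.33 to 9.76 CPM in the 6 ATUX libraries (median 7.88) and 66.6 to 78.9 CPM in the 6 Sorafenib libraries (median 71.7) (log2 = -3.15 ± 0.22, edgeR adjusted p = 0.00152). IFI44, a classic interferon-induced gene, stood at 1.76 and 0.845 CPM in the ATUX clones against 11.1 and 11.6 CPM in the Sorafenib clones (log2 = -3.13 ± 0.35, edgeR adjusted p = 0.00379). IFITM3, which blocks virus entry, did not pass, at 232 and 402 CPM in the ATUX clones against 181 and 193 CPM in the Sorafenib clones (log2 = 0.78, 95% interval 0.09 to 1.46, edgeR adjusted p = 0.0906). Of the 3 members on chromosomes 7 and 15, all 3 were called lower. For antigen presentation, 1 gene was called higher and 3 lower of 23 (median log2 0.18). Interferon genes called higher numbered 0 without Sor9H, 2 without SMAP8D or SMAP6G or without the third ATUX libraries and 3 without ATUX8H, by DESeq2 or by limma-voom. Interferon genes called lower numbered 6 without Sor6G, 7 without Sor9H and 8 without ATUX9D. Presentation genes called higher numbered 0 without Sor9H or with only the 4 clones, 2 with no low-count filter, with RLE factors, without the third ATUX libraries or without the third Sor9H library, 3 without Sor6G or by DESeq2, 4 by limma-voom and 5 without ATUX8H. Presentation genes called lower numbered 1 without ATUX8H, Sor6G or Sor9H.

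NF-kB genes and cytokines gave no common direction, with 5 called higher and 4 lower of 30 (median log2 0.10). The chemokine CCL2, which attracts monocytes, was nevertheless far higher in the ATUX clones, at 394 to 748 CPM in the 6 ATUX libraries (median 549) and 3.36 to 32.2 CPM in the 6 Sorafenib libraries (median 15.1) (log2 = 5.05 ± 0.89, edgeR adjusted p = 0.0116). Sor9H held more of it than Sor6G and still less than any ATUX library. LIF, a cytokine of the IL-6 family, stood at 62.95 and 79.6 CPM in the ATUX clones against 37.2 and 32.8 CPM in the Sorafenib clones (log2 = 1.02 ± 0.17, edgeR adjusted p = 0.00957). CD14, a lipopolysaccharide co-receptor of myeloid cells and one of the immune markers, was higher at 1.33 and 2.29 CPM in the ATUX clones against 0.0265 and 0.132 CPM in the Sorafenib clones (log2 = 4.53 ± 0.69, edgeR adjusted p = 0.00727). CCL2 lost its call with no low-count filter (edgeR adjusted p = 0.0620). CCL2 had an adjusted p of 7.01e-19 to 0.0620 over its 16 alternatives. LIF lost its call without Sor9H (edgeR adjusted p = 0.0628). LIF had an adjusted p of 2.87e-13 to 0.0628 over its 16 alternatives. NF-kB genes called higher numbered 1 without Sor9H, 2 without Sor6G, 3 with no low-count filter and 9 by DESeq2. NF-kB genes called lower numbered 0 without Sor6G, 1 without ATUX9D, Sor9H or SMAP6G or with only the 4 clones and 2 without ATUX8H, SMAP8D or SMAP9C.

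Glycolysis and hypoxia genes were called higher more often than lower. Of 34 tested, 13 were called higher and 3 lower in the ATUX clones (median log2 0.50). LDHA, which turns pyruvate into lactate, stood at 1659.8 and 1716 CPM in ATUX8H and ATUX9D, against 406 and 489 CPM in Sor6G and Sor9H (log2 = 1.92 ± 0.14, edgeR adjusted p = 0.00166), and SLC16A3, which exports lactate, at 501 and 384 CPM in the ATUX clones against 102 and 102 CPM in the Sorafenib clones (log2 = 2.13 ± 0.18, edgeR adjusted p = 0.00237). Enolase ENO1 stood at 3280.1 and 3709 CPM in the ATUX clones against 1534 and 1481 CPM in the Sorafenib clones (log2 = 1.22 ± 0.16, edgeR adjusted p = 0.00507). Hexokinase 2 (HK2), at the head of the path, was the exception at 16.99 and 7.41 CPM in the ATUX clones against 55.4 and 44.1 CPM in the Sorafenib clones (log2 = -2.05 ± 0.44, edgeR adjusted p = 0.0195), and so was EPAS1, the hypoxia factor HIF-2 alpha, at 268 and 207 CPM in the ATUX clones against 626 and 651 CPM in the Sorafenib clones (log2 = -1.43 ± 0.22, edgeR adjusted p = 0.00797), the last picked after its values were seen. HK2 without the third ATUX libraries stood at 9.74 and 4.71 CPM in ATUX8H and ATUX9D. HK2 lost its call without Sor6G or Sor9H or with only the 4 clones (edgeR adjusted p = 0.0824, 0.0692 and 0.0517). HK2 had an adjusted p of 3.47e-06 to 0.0824 over its 16 alternatives. Glycolysis genes called higher numbered 6 without Sor9H. Glycolysis genes called lower numbered 1 without Sor6G or with only the 4 clones and 5 by limma-voom.

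Respiration genes were counted apart by the genome that encodes them. Of 38 nuclear genes of oxidative phosphorylation, 8 were called higher and 3 lower (median log2 0.18), and of 13 mitochondrially encoded genes 0 were called higher and 6 lower by edgeR (median log2 -0.39), with 1 higher at an unadjusted p under 0.05 and 0 higher by DESeq2 and by limma-voom. The libraries of the drugs did not overlap, with ATUX lower, for 1 of these 13 genes, where the same holds for 20.3% of all genes tested. ATP5A1, a subunit of the ATP synthase, stood at 355 and 451 CPM in the ATUX clones against 148 and 171 CPM in the Sorafenib clones (log2 = 1.34 ± 0.16, edgeR adjusted p = 0.00402). MT-ND4, a subunit of complex I, stood at 4791 and 5554 CPM in the ATUX clones against 9163 and 7909.9 CPM in the Sorafenib clones (log2 = -0.72 ± 0.17, edgeR adjusted p = 0.0261). The third Sor9H library stood apart, with MT-ND4 at 5643 CPM, against 8846 and 9241 CPM in the other Sor9H libraries, and inside the range of the ATUX9D libraries, 5182 to 5744 CPM. Its share of mitochondrial reads was 3.58%, against 5.06 and 5.22%. Without this library the log2 of MT-ND4 was -0.82 (edgeR adjusted p = 0.0134), and 7 mitochondrially encoded genes were called lower, against 6 with it, a setting added after the values were seen. MT-CO1, of complex IV, stood at 6239 and 6608 CPM in the ATUX clones against 7261 and 7953 CPM in the Sorafenib clones (log2 = -0.23, 95% interval -0.55 to 0.09, edgeR adjusted p = 0.235). PPARGC1A, a coactivator that promotes mitochondrial growth, was lower at 0.974 and 0.476 CPM in the ATUX clones against 11.72 and 14.4 CPM in the Sorafenib clones (log2 = -4.16 ± 0.42, edgeR adjusted p = 0.00300). MT-ND4 lost its call without ATUX8H, ATUX9D, Sor6G or Sor9H or with only the 4 clones (edgeR adjusted p = 0.0873, 0.0557, 0.102, 0.0637 and 0.0595). MT-ND4 had an adjusted p of 2.18e-06 to 0.102 over its 16 alternatives. Nuclear respiration genes called higher numbered 2 without Sor6G or with only the 4 clones, 3 without ATUX9D, Sor9H or SMAP8D, 4 without ATUX8H, 5 without SMAP9C or SMAP6G or with no low-count filter and 14 by limma-voom. Nuclear ones called lower numbered 1 without ATUX9D or Sor9H or with only the 4 clones. Mitochondrial ones called lower numbered 0 without ATUX8H or Sor6G or with only the 4 clones, 1 without Sor9H and 2 without ATUX9D.

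Antioxidant genes of the NRF2 programme gave 3 called higher and 5 lower of 22 (median log2 -0.12). AKR1C3, an aldo-keto reductase with close relatives beside it, stood at 0.0150 and 0.0838 CPM in the ATUX clones against 4.70 and 13.4 CPM in the Sorafenib clones (log2 = -7.45 ± 1.28, edgeR adjusted p = 0.0105). Peroxiredoxin PRDX1 was higher at 565 and 549 CPM in the ATUX clones against 308 and 357 CPM in the Sorafenib clones (log2 = 0.75 ± 0.13, edgeR adjusted p = 0.0106), and TXNRD1, thioredoxin reductase, stood at 618 and 504 CPM in the ATUX clones against 565 and 512 CPM in the Sorafenib clones (log2 = 0.06, 95% interval -0.49 to 0.60, edgeR adjusted p = 0.878). In iron and zinc handling, 4 were called higher and 1 lower of 23 (median log2 0.20). The transferrin receptor TFRC, which brings iron in, was higher at 549 and 476 CPM in the ATUX clones against 218 and 197 CPM in the Sorafenib clones (log2 = 1.32 ± 0.17, edgeR adjusted p = 0.00469), as was metallothionein MT2A, which binds zinc, at 197 and 164 CPM in the ATUX clones against 40.3 and 46.02 CPM in the Sorafenib clones (log2 = 2.06 ± 0.18, edgeR adjusted p = 0.00254). SLC40A1, ferroportin, which lets iron out, was lower at 0.0143 and 0.0141 CPM in the ATUX clones against 0.862 and 2.302 CPM in the Sorafenib clones (ratio of the counts 108, 95% counting interval 29.4 to 894, edgeR adjusted p = 0.00379), and was picked after its values were seen. Its level was low in the Sorafenib clones too. In lysosomes and autophagy, 5 were called higher and 5 lower of 29 (median log2 -0.16): the hydrolase HEXA stood at 59.8 and 50.3 CPM in the ATUX clones against 165 and 169.9 CPM in the Sorafenib clones (log2 = -1.60 ± 0.16, edgeR adjusted p = 0.00274) and BECN1, which starts autophagosomes, at 69.03 and 61.6 CPM in the ATUX clones against 30.5 and 32.9 CPM in the Sorafenib clones (log2 = 1.05 ± 0.14, edgeR adjusted p = 0.00502). Of the 2 members of this list tested on chromosomes 7 and 15, 2 were called lower. AKR1C3 without the third ATUX libraries stood at 0 and 0.0808 CPM in ATUX8H and ATUX9D. PRDX1 lost its call without Sor6G (edgeR adjusted p = 0.0591). PRDX1 had an adjusted p of 6.18e-15 to 0.0591 over its 16 alternatives. NRF2 genes called higher numbered 1 without Sor6G or Sor9H or with only the 4 clones. Metal genes called higher numbered 2 without Sor6G. Metal genes called lower numbered 2 without ATUX8H or SMAP6G, with RLE factors, with only the 4 clones or without the third ATUX libraries, 3 without SMAP9C, with no low-count filter or by limma-voom and 4 by DESeq2. Autophagy genes called higher numbered 2 without Sor6G and 3 without Sor9H or with only the 4 clones.

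The clones of 1 drug also differed among themselves. Of the 4810 called genes, 384 stood over 2-fold apart between ATUX8H and ATUX9D, and 128 between Sor6G and Sor9H. SUSD2, a membrane protein, stood at 13.5 and 327 CPM in the ATUX clones against 1.25 and 2.27 CPM in the Sorafenib clones, and the alkaline phosphatase ALPPL2, with close copies in the genome, at 75.9 and 0.782 CPM in the ATUX clones against 0.0148 and 0.0293 CPM in the Sorafenib clones, so that each rested mainly on 1 ATUX clone. SUSD2 lost its call without ATUX9D, Sor6G or Sor9H, with only the 4 clones, with no low-count filter or by limma-voom (adjusted p = 0.0641, 0.143, 0.134, 0.0708, 0.134 and 0.135). SUSD2 had an adjusted p of 1.81e-11 to 0.143 over its 16 alternatives. Its log2 was 2.96 without ATUX9D. ALPPL2 lost its call without Sor6G or Sor9H, with only the 4 clones or with no low-count filter (edgeR adjusted p = 0.145, 0.150, 0.0761 and 0.135). ALPPL2 had an adjusted p of 1.01e-09 to 0.150 over its 15 alternatives.

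Whole chromosomes differed in their median. Over 10970 genes averaging 5 CPM or more, the median log2 difference was 0.02, and 16.4% were called higher and 15.04% lower in the ATUX clones. The X chromosome (0.51, 350 genes), chromosome 5 (0.48, 496 genes) and chromosome 13 (0.33, 194 genes) had the highest medians, and chromosomes 7 (-0.40, 535 genes), 15 (-0.37, 367 genes) and 16 (-0.08, 508 genes) the lowest. On chromosome 5, 42.5% of the genes were called higher, and on chromosome 15, 34.1% were called lower.

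Clone by clone, the X chromosome and the autosomes behaved differently. On chromosome 5 the median log2 level relative to the mean of the 4 clones was 0.20 in ATUX8H and 0.26 in ATUX9D, against -0.23 in Sor6G and -0.21 in Sor9H, so both clones of a drug lay on the same side. Chromosome 7 was the reverse, at -0.15 and -0.23 in the ATUX clones against 0.18 and 0.20 in the Sorafenib clones, and chromosome 15 likewise, at -0.10 and -0.28 in the ATUX clones against 0.21 and 0.18 in the Sorafenib clones. On the X chromosome ATUX8H alone was high: its median was 0.64, while ATUX9D stood at -0.24, against -0.19 in Sor6G and -0.18 in Sor9H. The difference of the drugs on the X chromosome thus rested on 1 ATUX clone. Of the X-linked genes described, EBP, NSDHL, ARAF and RNF128 were called higher and stood higher in ATUX8H than in ATUX9D. DKC1, of ribosome biogenesis, did so too, at 258 and 119 CPM in the ATUX clones against 74.2 and 54.9 CPM in the Sorafenib clones (log2 = 1.55 ± 0.35, edgeR adjusted p = 0.0236), while MID1IP1, also X-linked, was called lower. DKC1 lost its call without Sor6G or Sor9H or with only the 4 clones (edgeR adjusted p = 0.0718, 0.137 and 0.0736). DKC1 had an adjusted p of 1.50e-21 to 0.137 over its 16 alternatives. Its log2 was 0.89 without ATUX8H. Whether shifts of whole chromosomes account for the calls of single genes on them was not tested. Outside chromosome 5 the median log2 was 1.30 for replication genes and 0.62 for ribosome biogenesis genes. Chromosome 5 holds only 1 of the 43 replication genes and 3 of the 31 ribosome biogenesis genes. Leaving them out could move these medians little, and genes of other shifted chromosomes were kept, so the values do not answer that question.

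**Figure D5:**
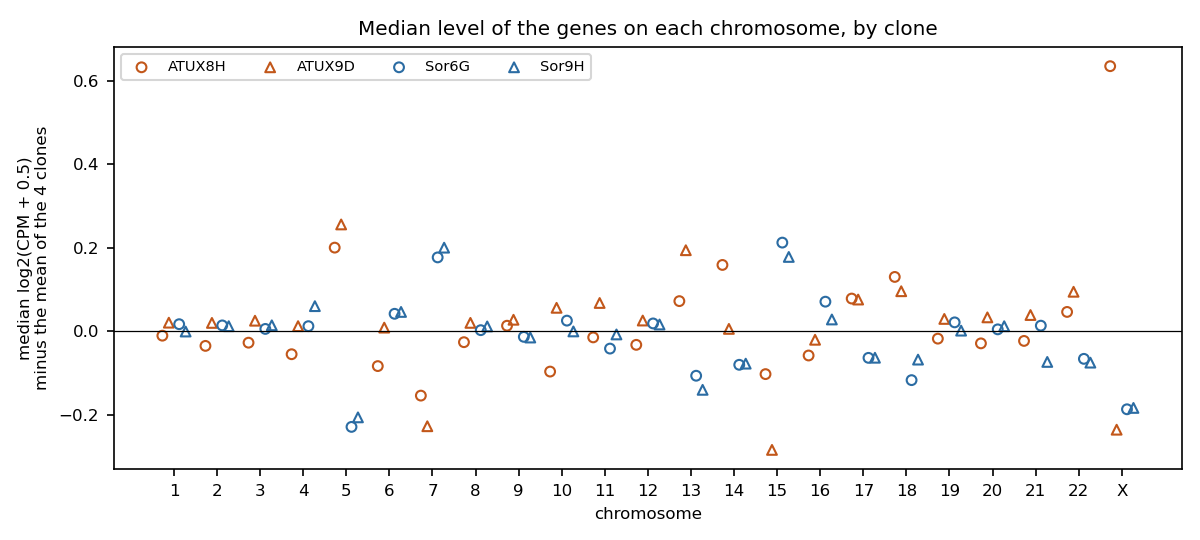
Median over the genes of each chromosome (x axis) of log2 of CPM plus 0.5 in a clone minus the mean of the 4 clones (y axis), for genes averaging 5 CPM or more; each symbol is 1 clone. Both ATUX clones lie on one side of both Sorafenib clones for chromosomes 5, 7, 13 and 15, and also for others, such as 17 and 18. ATUX8H stands alone at 0.64 on the X chromosome.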

How the data were processed

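Whole-number read counts per gene for 58233 Ensembl genes on GRCh38 were used as deposited by the authors, raw and not normalized per the file headers and values. Reads had been handled with featureCounts 1.5.3, STAR 2.5.2b, cutadapt 1.15, SAMtools 1.5 and Bowtie2 2.3.3.1, per the submitters' processing notes, which give no order. Per the labels' protocols, 500 ng of RNA entered a poly-A selecting, stranded kit. Whether counting used the strand, and how it treated multi-mapping reads, is not given in the sources used here. Close copies (keratins 8 and 18, ENO1, NPM1, the AKR1C genes, mitochondrial genes, metallothioneins, TRBC2, ALPPL2) and overlapping or antisense genes are therefore uncertain. The gene positions of the same table were used as deposited.

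Libraries were matched to clones by the library name in their titles, and 0 columns belonged to other samples. Repeats of a clone differed by more than sampling noise (lowest chi-square over its degrees of freedom 3.60), so none was a copy of another. Counts were summed over the 3 libraries of each clone, and these 7 sums, SMAP clones included, were fitted in R 4.3.3 with edgeR 4.0.16 (TMM, filterByExpr, robust quasi-likelihood fit, drug as the factor), so that all 7 clones share 1 estimate of the spread. The test was run across all genes and p-values were adjusted over all of them (Benjamini-Hochberg). Standard errors come from the quasi-likelihood F. P-values measure only the spread between these picked clones. Where a drug's clones had 0 counts, a fold is a bound computed as if they held 3 counts in all, and with 1 to 3 counts a ratio is given with a 95% counting interval, both covering counting error only. DESeq2 1.42.0, limma 3.58.1 and the settings listed at the end were alternatives.

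The compared clones, the gene lists and the alternatives were chosen with earlier results of these data known. Genes named are the 12 per direction with the largest fold change among called genes with at least 10 CPM and separate libraries, the 8 per direction with the largest difference in CPM, up to 5 called members and the 2 most abundant of each list, the 4 per drug with the largest gap between clones, PP2A and kinase genes, the promoter genes described, and those said to be picked after their values were seen. The genes picked by their difference in CPM also had to have separate libraries. Not all of the named genes are described.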

Additional observations from a re-analysis of the deposited data

How the results depend on the processing

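The number of genes called was 4810. With the ATUX and Sorafenib clones alone it was 2750, of which 2619 were among the 4810. Leaving out 1 clone at a time gave 1430 (without Sor9H) to 4169 (without SMAP6G) genes, and 1394 of the 1430 were among the 4810. Where this leaves 1 clone of a drug, that clone is assumed to vary like the others. The cause of these losses was not tested beyond the smaller number of clones that each fit holds. The count was 4203 with no filter on low counts, 4780 without the third Sor9H library (a setting added after the values were seen), 4789 with RLE size factors, 5967 by DESeq2, 6462 by limma-voom with repeats of a clone treated as correlated and 4857 without the third ATUX libraries. Without ATUX9D, 59.5% of the calls were higher in the ATUX clones, against 51.5% with it.

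With the 21 libraries in place of clone sums, 12675 genes were called, because repeats of a clone then count as replicates. Adding the repeat number as a replicate block gave 12712. Deviations of same-numbered libraries were correlated within a drug, at 0.17 to 0.32 in 6 comparisons, and at -0.14 to 0.21 in 12 comparisons between the drugs, of which 5 exceeded 0.1. The labels tie no number to a shared batch and not every correlation exceeded 0.1, so the numbers were not treated as pairs.

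Of the 237 called genes that the rules name, 105 kept their call in every alternative run. The number that lost it was 112 without Sor9H, 99 without Sor6G, 70 without ATUX9D, 54 without ATUX8H and 62 with only the 4 clones, 47 with no filter on low counts, 30 without SMAP8D, 22 without SMAP9C, 22 without SMAP6G, 12 by limma-voom, 6 without the third ATUX libraries, 2 without the third Sor9H library and 0 by DESeq2 or with RLE factors. None of these 237 genes changed direction in the alternatives run, but of the 76 named genes that were not called 19 did in at least 1 of them. In all 4810 called genes both ATUX clones lay on one side of both Sorafenib clones. Leaving out a clone could therefore hardly turn a called gene, and the kept direction adds no support. At 21619126 to 27691256 counts per library, differences of genes near 0 CPM are known only to the bounds given.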
